A study of Homo sapiens with 647 samples.

Results

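EPHA2, EPHA4 and EFNA1 are 2 receptors and 1 ligand of the Eph and ephrin system, and their RNA was followed here through every combination of cell line and treatment in a breast cancer RNA sequencing series. They are 3 of the 54592 genes in the deposited count table, taken by name. They were chosen by their values in earlier results of these data, among them the low level of EPHA4 in cells making FGF3 ligand. The comparison of that line with GFP cells under solvent is therefore described below without a test. The same holds for EPHA4 with FIIN-3 against solvent in that line, in set 1.

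All libraries came from T47D, an estrogen receptor positive luminal breast cancer cell line. Cells were parental, or carried a lentivirus (plasmid pLX307) for GFP, FGFR1, FGFR2_WT, FGFR2_M538I, FGFR2_N550K, FGFR2_K660N or FGF3; the last is a secreted ligand, the others apart from GFP are receptors, and the sources used here do not say whether a line was a clone or a pool. Cells stood in 96-well plates for 48 hours and were then given DMSO, fulvestrant 100 nM (an antagonist that degrades the estrogen receptor), palbociclib 1 uM (a CDK4/6 inhibitor), FIIN-3 100 nM (a covalent FGFR inhibitor), trametinib 500 nM (a MEK inhibitor), the ligand FGF2 at a dose not given in the sources used here, or combinations, for 24 hours. The titles number the libraries through 2 runs, kept apart here: set 1 holds 64 groups of line and treatment, with DMSO, FGF2, fulvestrant and their combinations, and set 2 holds 48 groups, with palbociclib, FIIN-3 and their combinations. The 647 libraries fell into groups of 4 to 6, and 57 of 64 and 34 of 48 groups held 6. The FGF3 line had no FGF2 arms, and its untreated set 2 group was labelled control. Below, the control lines are parental and GFP, and the FGFR2 lines are wild type (WT), M538I, N550K and K660N.

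Eph receptors are receptor tyrosine kinases that are bound by ephrins on the surface of neighbouring cells, so that signalling needs cell contact. EFNA1 encodes ephrin-A1, which is held in the membrane by a lipid anchor and binds EphA receptors, EPHA2 among them; EPHA4 binds ephrins of both the A and the B class. Ligand-bound EPHA2 signals through its kinase and is then internalised, whereas EPHA2 without ligand is phosphorylated by AKT, RSK and related kinases and is associated with cell migration. In breast cancer EPHA2 is known as a gene of basal-like tumours, low in luminal cells, and it has been described as a transcriptional target of the RAS, RAF, MEK and ERK pathway, which lies downstream of FGF receptors.

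The 250 bases before the RefSeq start of each gene (GRCh38.p14, read in the direction of the gene) are printed because EPHA2 rose with FGF2 in FGFR1 cells while EPHA4 and EFNA1 fell. EPHA2 lies on chromosome 1 from 16124337 to 16156087 on the minus strand, EPHA4 on chromosome 2 from 221418027 to 221574202 on the minus strand and EFNA1 on chromosome 1 from 155127460 to 155134857 on the plus strand (GENCODE v29, GRCh38). The windows are chr1:16156070-16156319 for EPHA2, chr2:221574203-221574452 for EPHA4 and chr1:155127626-155127875 for EFNA1. Capitals mark an ETS core (GGAAGT, read here as ACTTCC) and the full cyclic AMP response element (CRE, TGACGTCA), the latter looked for after the sequence had been read.
EPHA2: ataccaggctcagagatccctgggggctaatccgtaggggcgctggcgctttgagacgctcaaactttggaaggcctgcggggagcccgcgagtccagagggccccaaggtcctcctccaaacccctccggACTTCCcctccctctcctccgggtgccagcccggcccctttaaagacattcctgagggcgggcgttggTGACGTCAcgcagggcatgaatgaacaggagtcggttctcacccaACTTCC
EPHA4: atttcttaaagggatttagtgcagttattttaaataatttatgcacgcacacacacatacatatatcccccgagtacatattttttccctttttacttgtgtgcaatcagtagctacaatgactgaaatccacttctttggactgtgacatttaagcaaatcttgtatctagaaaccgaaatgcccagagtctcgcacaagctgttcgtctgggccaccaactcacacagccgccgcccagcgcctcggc
EFNA1: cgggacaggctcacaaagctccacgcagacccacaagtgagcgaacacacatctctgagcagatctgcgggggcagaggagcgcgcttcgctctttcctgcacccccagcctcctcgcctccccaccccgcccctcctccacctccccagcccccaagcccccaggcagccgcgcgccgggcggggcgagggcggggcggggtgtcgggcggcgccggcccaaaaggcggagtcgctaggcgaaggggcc
Searched on both strands, the EPHA2 window held 2 ETS cores, one of them at the gene's start, 1 CRE starting 51 bases before it, and 1 GC box (GGGCGG). The EPHA4 window held 1 GC box and the EFNA1 window 5; neither held ETS, CRE, AP-1 (TGANTCA) or estrogen response element letters, and the EPHA2 window held none of the last 2. A second RefSeq start of EPHA4 has its window at chr2:221572305-221572554, with 5 GC boxes and none of the other motifs. Of 35116 promoter windows of this length, 19.5% held the ETS letters, 1.65% the CRE, 6.57% AP-1, 0.0399% the estrogen response element and 42.6% the GC box. GC content was 63.2% for EPHA2, 43.2% and 78% for the EPHA4 windows and 73.2% for EFNA1, against a median of 58% over all windows. A match of letters is a description, not evidence of binding.

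Total counts per library ran from 512961 to 13012180 in set 1 and from 619509 to 4804935 in set 2, with medians of 7570052.5 and 2887186. In 14 set 1 libraries and 2 set 2 libraries the mitochondrial ribosomal RNA MT-RNR2 took under 5% of counts, against medians of 18.03% and 18.9%; these low MT-RNR2 libraries stand apart, 10 of the 14 had DMSO or fulvestrant alone, and values without them are given where a call or a size changes. The transgenes matched the labels in the DMSO libraries: mean log2(CPM + 1) of FGFR1 was 8.48 in its own line and at most 4.04 elsewhere, that of FGFR2 7.36 to 9.15 in its 4 lines and at most 3.96 elsewhere, and that of FGF3 7.27 in its own line and at most 0.28 elsewhere. Summed over each marker list, T47D epithelial genes stood at 8725 to 101942 CPM in each library, 3 blood genes at 0 to 2.20, 3 endothelial genes at 0 to 12.9 and 3 fibroblast genes at 7.41 to 52.7. No label pairs the replicates, and nothing says that they came from separate cultures, so p-values measure the spread between these libraries. Their title numbers fall in ranges of 96, which the arms of some comparisons share only in part. The main tests treat the libraries of a group as independent and leave the range out. With the range as a block, 9 calls on the 3 genes were lost and 8 were gained, as given below. In bulk RNA, fewer cells with a transcript and less of it per cell cannot be told apart.

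Levels below are means ± SD of log2(CPM + 1), where CPM is the read count over the library's TMM-scaled total, on the usual counts-per-million scale, and per-library values are lowest, median and highest CPM (all values where a group has 5 libraries or fewer). Differences are log2 fold changes ± SE from edgeR's quasi-likelihood test, adjusted over all genes tested by Benjamini-Hochberg with a threshold of 0.05. Where a share of genes is given for groups that do not overlap, it is over genes with at least 10 reads summed over the 2 groups. Thinly counted genes are among them. CPM compares a gene with itself across groups but not 1 gene with another. EPHA2 was thinly counted: its median count was 19 reads in set 1 and 4 in set 2, and it was at 0 in 22 and 38 libraries, where a count of 0 still allows up to 5.16 and 1.92 CPM in the shallowest of them (3 reads, for counting error only). EPHA4 was at 0 in 2 libraries of each set. The medians of EPHA4 were 74 and 29 reads and those of EFNA1 1518 and 607. Among counts from 1 to 20, 88.5% of EPHA2 values and 79.1% of EPHA4 values were even, against 62.3% over all genes, the cause was not tested, and these counts carry no intervals here. EPHA2 shares its locus with the antisense gene AL451042.2, and EPHA4 with the antisense AC079834.2 and the pseudogene TMEM256P2; strand use is not stated in the sources, so reads of overlapping genes cannot be told apart.

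Per length, the ligand was far more abundant than either receptor. In the 45 DMSO libraries of set 1 the authors' deposited table gave EFNA1 a median of 136.5 transcripts-per-million units (TPM; lowest 38.4, highest 242.4), first among the 22 Eph and ephrin genes. EPHA4 had a median of 3.15 TPM (0 to 7.59), rank 9 of 22, and EPHA2 0.678 TPM (0 to 7.01), rank 10. The other abundant members were the ligand EFNA4 at 66.2, the receptor EPHB3 at 18.2, EPHA1 at 9.52, the ligand EFNA5 at 9.34 and the kinase-inactive receptor EPHB6 at 8.35 TPM. EPHA3, EPHA5, EPHA6, EPHA7 and the ligand EFNA2 had a median of 0. By line, median EPHA2 ran from 0.185 TPM in FGFR2 WT and 0.312 in GFP to 1.64 in N550K, 1.72 in K660N and 3.18 in FGF3. EPHA4 ran the other way, from 5.17 TPM in GFP to 1.39 in N550K and 0.260 in FGF3. EFNA1 medians stayed between 110.1 TPM in N550K and 184.4 in FGF3.

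**Figure D1:**
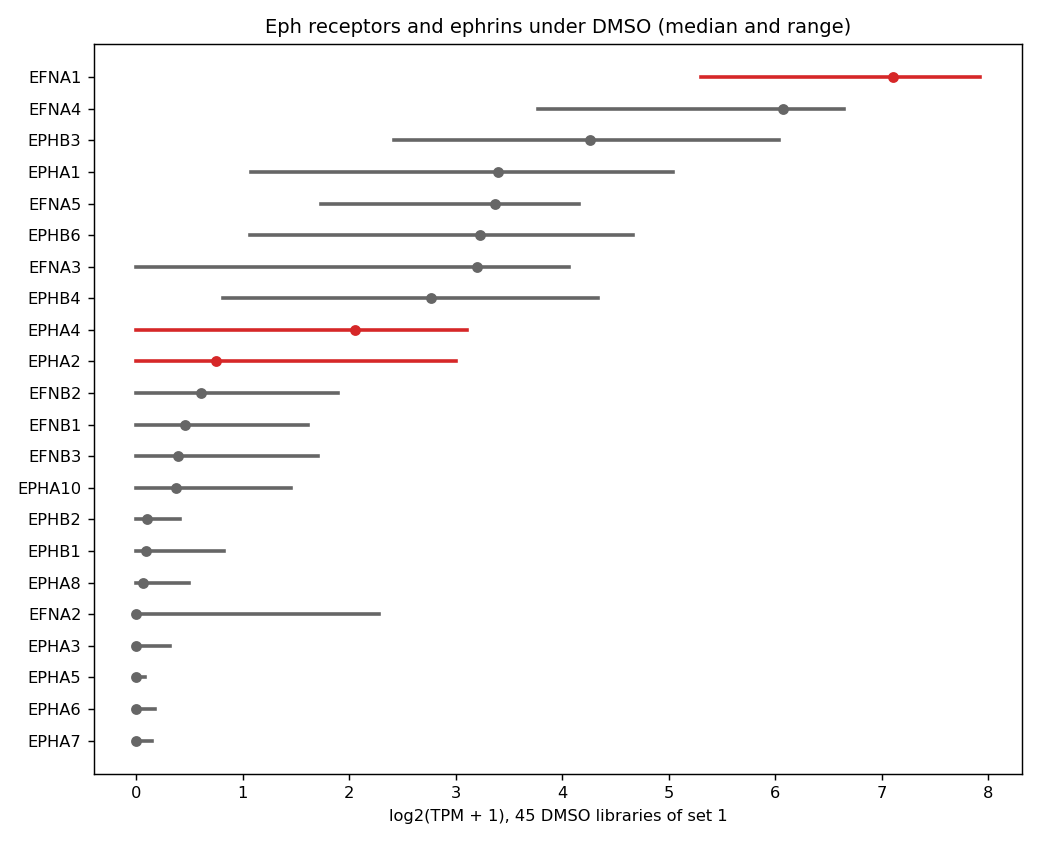
Level of the 22 Eph receptor and ephrin genes in the 45 DMSO libraries of set 1, on the authors' TPM scale; points are medians and lines run from the lowest to the highest library. EFNA1 (median 136.5 TPM) leads, and EPHA4 (3.15) and EPHA2 (0.678) sit in the middle of the family.

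Across the 64 set 1 groups EPHA2 ran from 0.33 ± 0.38 in parental cells under fulvestrant, FGF2 and FIIN-3 to 3.90 ± 0.33 in M538I under fulvestrant and FGF2. EPHA4 ran from 0.86 ± 1.04 in FGF3 under DMSO to 4.70 ± 0.16 in GFP under fulvestrant. EFNA1 moved least, from 6.68 ± 0.23 in FGFR1 under FGF2 to 8.66 ± 0.17 in FGF3 under fulvestrant and FIIN-3. In this order, neighbouring groups were closer than the larger of their SDs in 63 of 63 pairs for EPHA2, 62 of 63 for EPHA4 and 62 of 63 for EFNA1. The exception for EPHA4 was the last pair, a gap of 1.19 above the FGF3 line under DMSO. Apart from that pair and 1 pair for EFNA1, neighbours in the order did not differ beyond their spread.

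**Figure D2:**
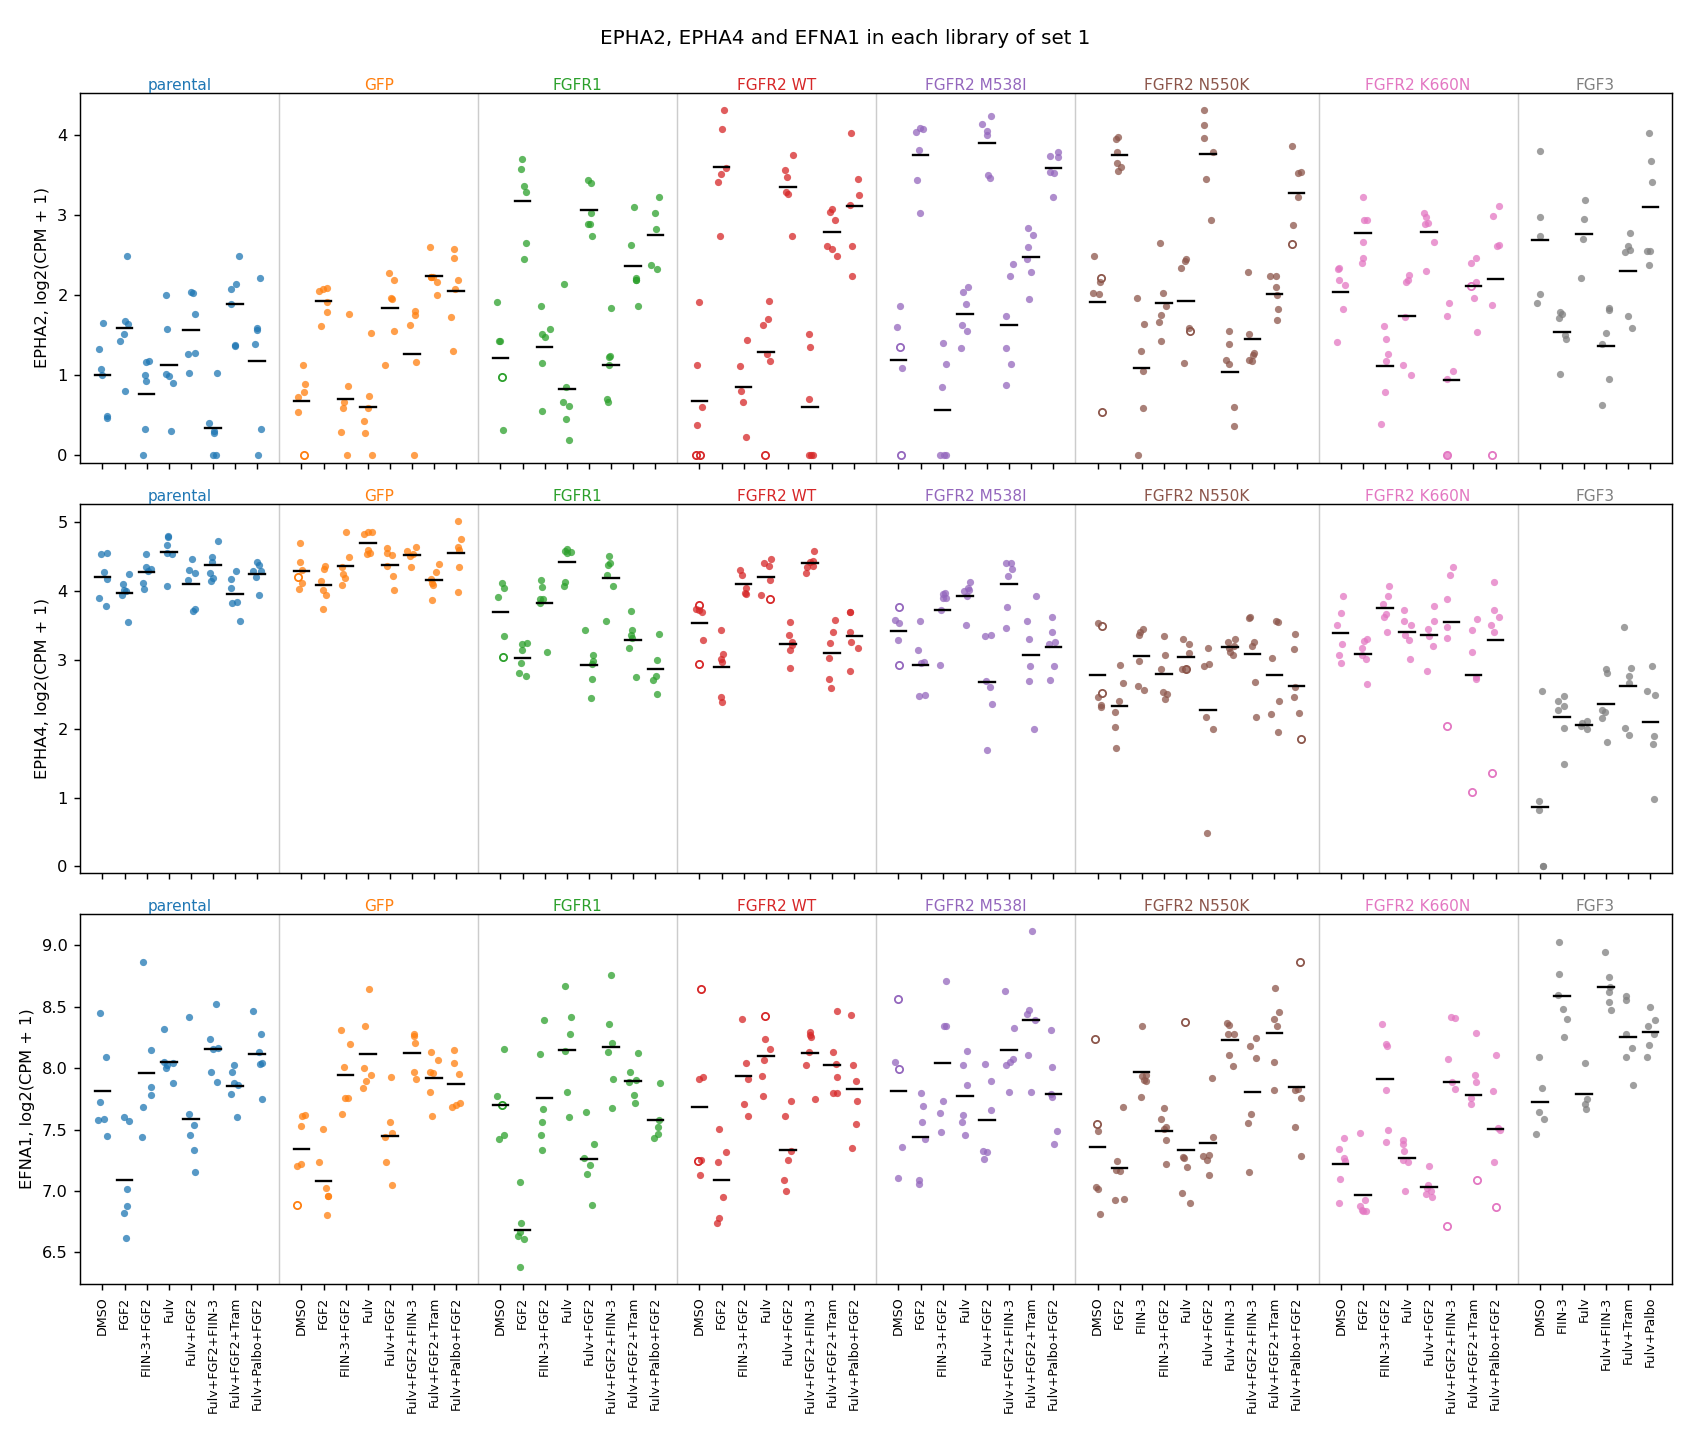
Level of EPHA2, EPHA4 and EFNA1, in log2(CPM + 1), in every set 1 library by line and treatment; points are libraries, open circles are libraries that stand apart and black lines are group means. Among the 64 groups EPHA2 has its highest mean in M538I under fulvestrant and FGF2 (3.90), and EPHA4 its lowest in the FGF3 line under DMSO (0.86).

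EPHA2 was low in T47D cells under DMSO, with its highest means in FGF3, K660N and N550K. The order was 2.68 ± 0.77 in FGF3, 2.03 ± 0.35 in K660N, 1.90 ± 0.69 in N550K, 1.21 ± 0.60 in FGFR1, 1.18 ± 0.72 in M538I, 1.00 ± 0.47 in parental cells, 0.67 ± 0.38 in GFP and 0.67 ± 0.74 in FGFR2 WT. CPM values were 0, 0.687 and 1.17 in GFP, 1.66, 3.44 and 4.03 in K660N, 0.445, 3.26 and 4.61 in N550K and 2.74, 3.03, 5.64, 6.88 and 12.9 in FGF3. All K660N libraries were above all GFP libraries (so were 1.12% of genes), as were all FGF3 libraries (2.89%), while N550K overlapped GFP in its lowest library. That library, replicate 4 with 2 reads, stands apart by its low MT-RNR2; the others lay from 2.02 to 2.49 in log2(CPM + 1), above the highest GFP library at 1.12. With the low MT-RNR2 libraries left out the mean was 2.17 in N550K, 2.03 in K660N and 0.81 in GFP. Against GFP the difference was 2.17 ± 0.43 (adjusted p = 0.012) in K660N (n = 6 and 6), where 1.51% of genes tested were called in either direction, and 2.03 (adjusted p = 0.0032) with the low MT-RNR2 libraries left out. EPHA2 passed the minimum count in this comparison through the K660N libraries alone, so it had to be higher there and the 2 values are a description. With no minimum count K660N gave 2.20 ± 0.51 (adjusted p = 0.0018). EPHA2 did not pass the minimum in the other receptor lines; with none N550K gave 2.14 ± 0.58 (adjusted p = 0.084), M538I 1.12 ± 0.77 (adjusted p = 0.51), FGFR1 1.09 ± 0.70 (adjusted p = 0.56) and FGFR2 WT 0.27 ± 0.81 (adjusted p = 0.90). DUSP6, a phosphatase gene that ERK signalling raises and that dampens ERK, had its highest means in these 3 lines and M538I, where EPHA2 stood at 1.18 ± 0.72: 5.36 ± 0.76 in N550K, 5.10 ± 0.42 in FGF3, 4.75 ± 0.21 in K660N and 3.78 ± 0.52 in M538I, against 1.80 ± 0.54 in GFP.

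FGF2 raised EPHA2 in the control lines, in FGFR1 and in the FGFR2 lines. Under FGF2 the order was 3.75 ± 0.18 in N550K, 3.74 ± 0.43 in M538I, 3.60 ± 0.55 in FGFR2 WT, 3.17 ± 0.50 in FGFR1, 2.77 ± 0.32 in K660N, 1.92 ± 0.19 in GFP and 1.58 ± 0.54 in parental cells. CPM values in FGFR2 WT were 0, 0.403 and 2.76 under DMSO and 5.66, 10.7 and 18.8 under FGF2. In M538I the FGF2 values were 7.12, 14.2 and 16.005 and in N550K 10.7, 12.2 and 14.7. FGFR1 went from 0.244, 0.960, 1.67, 1.68 and 2.74 to 4.48, 9.01 and 11.96, GFP from 0, 0.687 and 1.17 to 2.06, 2.95 and 3.26, and K660N from 1.66, 3.44 and 4.03 to 4.27, 5.98 and 8.38. In 6 of the 7 lines every FGF2 library was above every DMSO library; parental cells overlapped. Of all genes, 2.6%, 1.99%, 0.717%, 0.334%, 6.08% and 0.924% did the same in FGFR2 WT, M538I, N550K, K660N, FGFR1 and GFP. The log2 fold change was 1.50 ± 0.32 (adjusted p = 0.0042) in the control lines, 2.45 ± 0.44 (0.0016) in FGFR1 and 2.33 ± 0.27 (5.5e-09) in the FGFR2 lines. In these classes 5.96%, 31.6% and 46.2% of genes tested were called in either direction (FGF2 and DMSO libraries numbered 12 and 12, 6 and 5, and 24 and 23). The FGF2 effect in FGFR1 exceeded that in the control lines by 0.99 ± 0.55 (adjusted p = 0.31) and the effect in the FGFR2 lines exceeded it by 0.84 ± 0.48 (adjusted p = 0.39), so neither difference was past the threshold (3.24% and 1.87% of genes were). Because the minimum count could be met through the FGF2 arm alone, each test was repeated with no minimum; no EPHA2 call was lost.

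By line, the mean rise of EPHA2 with FGF2 in log2(CPM + 1) was 2.94 in FGFR2 WT, 2.56 in M538I, 1.96 in FGFR1, 1.85 in N550K, 1.25 in GFP, 0.74 in K660N and 0.59 in parental cells. K660N, which started high, rose least among the receptor lines and ended below the other FGFR2 lines. A test of its FGF2 effect against the other FGFR2 lines, added after the values were seen, gave -1.97 ± 0.52 (adjusted p = 0.23), with 0.028% of genes called. The same test gave -1.97 (adjusted p = 0.031) with no minimum count, -1.99 (adjusted p = 0.016) with DESeq2 and -1.60 (adjusted p = 0.12) with the low MT-RNR2 libraries left out, so its call depends on the processing.

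Fulvestrant alone did not change EPHA2 past the threshold. Under fulvestrant the order was 2.76 ± 0.42 in FGF3, 1.92 ± 0.56 in N550K, 1.76 ± 0.30 in M538I, 1.74 ± 0.56 in K660N, 1.28 ± 0.69 in FGFR2 WT, 1.13 ± 0.59 in parental cells, 0.82 ± 0.68 in FGFR1 and 0.59 ± 0.52 in GFP. The log2 fold change against DMSO was 0.10 ± 0.45 (adjusted p = 0.94) in the control lines and 0.27 ± 0.28 (adjusted p = 0.56) in the FGFR2 lines, where 1.52% and 2.72% of genes were called. In FGFR1 EPHA2 was under the minimum count, and 0.0791% of genes were called. FGF2 raised EPHA2 in the presence of fulvestrant as well. Under fulvestrant and FGF2 the order was 3.90 ± 0.33 in M538I, 3.76 ± 0.50 in N550K, 3.35 ± 0.35 in FGFR2 WT, 3.06 ± 0.29 in FGFR1, 2.79 ± 0.27 in K660N, 1.84 ± 0.43 in GFP and 1.56 ± 0.43 in parental cells. M538I went from 1.51, 2.40 and 3.30 CPM under fulvestrant to 10.02, 15.3 and 17.8 with FGF2 added, and FGFR1 from 0.139, 0.556 and 3.40 to 5.65, 6.75 and 9.80. In FGFR1 and in the 4 FGFR2 lines the 2 arms did not overlap, whereas in parental and GFP cells they did. Of all genes, 4.91%, 3.68%, 1.86%, 0.767% and 0.597% rose without overlap in FGFR1, FGFR2 WT, M538I, N550K and K660N. The change was 1.32 ± 0.40 (adjusted p = 0.025) in the control lines, 2.86 ± 0.47 (0.00026) in FGFR1 and 2.08 ± 0.18 (4.4e-13) in the FGFR2 lines. Here 11.6%, 26.7% and 36.1% of genes were called. With the range of 96 title numbers in which a library falls as a block (the labels do not call it a batch), the control line value was 1.17 (adjusted p = 0.11), which ends that call.

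FIIN-3 lowered EPHA2 in each line class in which FGF2 had raised it. Added to FGF2, it left 1.89 ± 0.42 in N550K, 1.35 ± 0.45 in FGFR1, 1.11 ± 0.45 in K660N, 0.85 ± 0.46 in FGFR2 WT, 0.76 ± 0.49 in parental cells, 0.69 ± 0.60 in GFP and 0.56 ± 0.64 in M538I. In M538I the CPM values were 7.12, 14.2 and 16.005 with FGF2 and 0, 0.398 and 1.65 with FIIN-3 added, and 3 of the 6 libraries with FIIN-3 held no EPHA2 read. In FGFR1 they were 4.48, 9.01 and 11.96 and 0.466, 1.82 and 2.62. The change was -1.71 ± 0.39 (adjusted p = 0.0014) in the control lines, -2.35 ± 0.34 (7e-05) in FGFR1 and -2.90 ± 0.23 (1.9e-15) in the FGFR2 lines. In these classes 24.4%, 31.3% and 55.5% of genes were called. FGFR1, FGFR2 WT, M538I, N550K and K660N showed no overlap between the arms, as did 4.69%, 4.88%, 4.07%, 1.6% and 5.08% of genes in those lines. With fulvestrant present the levels under FGF2 and FIIN-3 were 1.62 ± 0.61 in M538I, 1.45 ± 0.43 in N550K, 1.27 ± 0.75 in GFP, 1.13 ± 0.43 in FGFR1, 0.94 ± 0.82 in K660N, 0.59 ± 0.70 in FGFR2 WT and 0.33 ± 0.38 in parental cells. The change from fulvestrant and FGF2 was -1.49 ± 0.43 (adjusted p = 0.0097) in the control lines, -2.50 ± 0.33 (1.7e-05) in FGFR1 and -2.84 ± 0.23 (1.3e-15) in the FGFR2 lines. Here 24.3%, 29.7% and 57.8% of genes were called. The control line value with the title range block was -1.41 (adjusted p = 0.055), no longer past the threshold. These falls and the FGF2 rises share the FGF2 libraries, so they are not independent of each other. Compared with fulvestrant alone, a comparison added after the data were seen, fulvestrant with FGF2 and FIIN-3 gave -0.16 ± 0.59 (adjusted p = 0.92) in the control lines and -0.71 ± 0.30 (adjusted p = 0.071) in the FGFR2 lines (5.3% and 25.2% of genes called). The FGFR2 value passed with DESeq2, -0.74 (adjusted p = 0.025), and with the low MT-RNR2 libraries left out, -0.74 (adjusted p = 0.032).

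In N550K, DUSP6 stayed high under FIIN-3 with FGF2. Without fulvestrant, N550K went from 10.7, 12.2 and 14.7 CPM of EPHA2 with FGF2 to 1.67, 2.50 and 5.29 with FIIN-3 added, a mean of 1.89 ± 0.42, the highest of the 7 lines and close to its level under DMSO (1.90 ± 0.69). In set 2 N550K also had the highest EPHA2 means of the 7 lines under FGF2 with FIIN-3, 1.61 ± 0.53 on palbociclib and 2.04 ± 0.99 on palbociclib and fulvestrant. DUSP6 in these arms went from 7.04 ± 0.20 to 5.51 ± 0.21, where the other 6 lines stood between 1.38 and 2.40 with FIIN-3 added. Tested in these arms as a difference of the FIIN-3 effect between N550K and the other FGFR2 lines, DUSP6 fell less in N550K, by 3.11 ± 0.28 (adjusted p = 4.8e-11), while the EPHA2 value of 1.16 ± 0.46 (adjusted p = 0.28) was not past the threshold. Of all genes 2.19% were called. With fulvestrant and FGF2, adding FIIN-3 took EPHA2 in N550K from 6.65, 13.7 and 18.8 CPM to 1.25, 1.40 and 3.89, with no overlap (as in 2.42% of genes), and its mean to 1.45 ± 0.43. DUSP6 in the same arms went from 7.16 ± 0.30 to 5.45 ± 0.25, where the other 6 lines stood between 1.46 and 2.09 under that combination. Without FGF2, fulvestrant and FIIN-3 left N550K at 1.03 ± 0.46 for EPHA2 and 1.83 ± 0.50 for DUSP6, and FIIN-3 alone at 1.09 ± 0.71 and 1.56 ± 0.47. The difference between N550K and the other lines was not tested in the arms with fulvestrant.

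Trametinib acted on EPHA2 differently by line class. Added to fulvestrant and FGF2, it left 2.79 ± 0.26 in FGFR2 WT, 2.48 ± 0.33 in M538I, 2.36 ± 0.43 in FGFR1, 2.24 ± 0.20 in GFP, 2.10 ± 0.34 in K660N, 2.01 ± 0.22 in N550K and 1.89 ± 0.45 in parental cells, a narrower range than without it. N550K went from 6.65, 13.7 and 18.8 to 2.21, 3.13 and 3.71 CPM and M538I from 10.02, 15.3 and 17.8 to 2.86, 4.76 and 6.15, in both without overlap, as in 1.7% and 1.15% of genes. GFP went from 1.17, 2.87 and 3.83 to 2.98, 3.66 and 5.06, with overlap. The change was 0.46 ± 0.22 (adjusted p = 0.13) in the control lines, -0.78 ± 0.25 (0.051) in FGFR1 and -1.26 ± 0.14 (3.5e-10) in the FGFR2 lines. In these classes 27.3%, 11.3% and 28.1% of genes were called. The FGFR1 value passed with DESeq2 size factors, -0.78 (adjusted p = 0.048), with no minimum count and with the DESeq2 test. Tests of the difference, added after the data were seen, gave -1.24 ± 0.35 (adjusted p = 0.024) for FGFR1 against the control lines and -1.72 ± 0.26 (adjusted p = 9.6e-07) for the FGFR2 lines against them, with 5.78% and 8.51% of genes called.

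Trametinib left more EPHA2 than FIIN-3 did. Set against each other on fulvestrant and FGF2, trametinib minus FIIN-3 was 1.93 ± 0.38 (adjusted p = 9.1e-05) in the control lines, 1.68 ± 0.38 (0.0019) in FGFR1 and 1.55 ± 0.28 (5.6e-06) in the FGFR2 lines for EPHA2. In these classes 42.5%, 30% and 50.4% of genes were called. For DUSP6 it was -1.20 ± 0.28 (adjusted p = 0.00076) in the control lines, -0.81 ± 0.35 (0.089) in FGFR1 and -1.13 ± 0.29 (0.0012) in the FGFR2 lines. Among the FGFR2 lines only N550K had a DUSP6 mean that differed beyond the larger of the 2 SDs, 2.01 ± 0.46 with trametinib and 5.45 ± 0.25 with FIIN-3; FGFR2 WT had 1.69 ± 0.36 and 1.71 ± 0.36, M538I 1.86 ± 0.31 and 1.86 ± 0.54, and K660N 1.45 ± 0.40 and 1.67 ± 0.20. In FGFR2 WT the EPHA2 values were 4.61, 5.89 and 7.39 CPM with trametinib and 0, 0.314 and 1.86 with FIIN-3, with no overlap. Parental, GFP and FGFR1 libraries did not overlap either, while M538I, N550K and K660N did. Of all genes, 5.8%, 4.36%, 6.33% and 5.4% were higher without overlap in FGFR2 WT, parental, GFP and FGFR1 cells. Against fulvestrant alone, fulvestrant with FGF2 and trametinib still had higher EPHA2, by 1.78 ± 0.37 (adjusted p = 0.00024) in the control lines, 2.09 ± 0.49 (0.0032) in FGFR1 and 0.83 ± 0.20 (0.00072) in the FGFR2 lines. Here 40.5%, 34% and 36.1% of genes were called. Both of these comparisons share arms with the preceding ones, and the last was added after the data were seen.

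**Figure D3:**
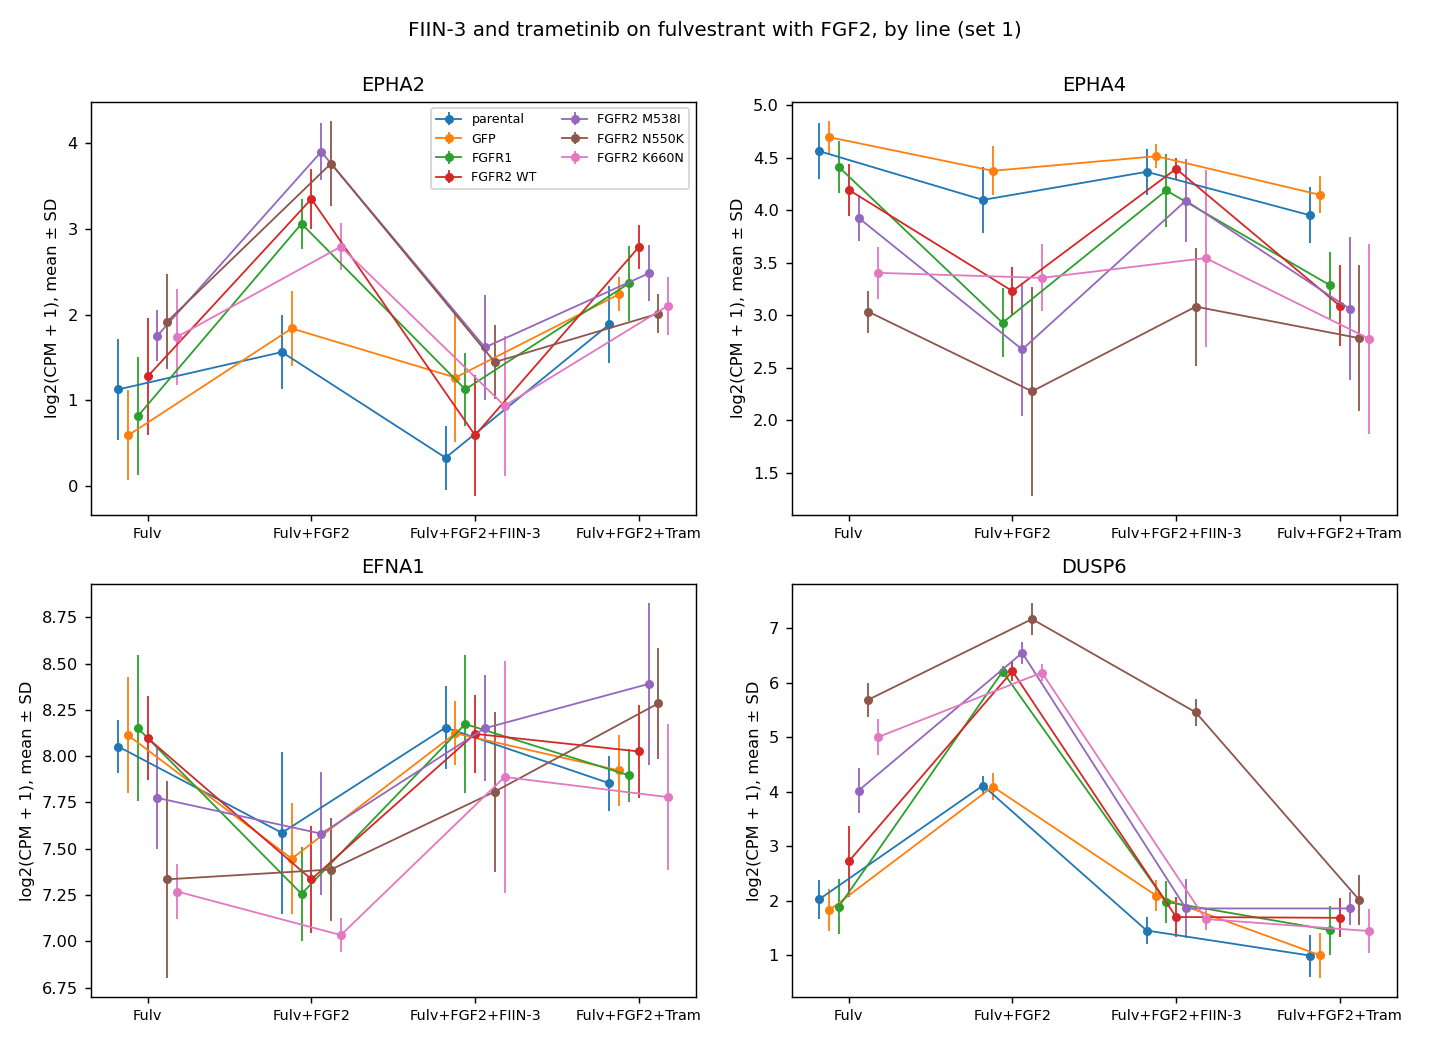
Level of each gene, in log2(CPM + 1), under fulvestrant, fulvestrant with FGF2, and that pair with FIIN-3 or trametinib, in each set 1 line that had FGF2 arms; points are group means and bars are SD over libraries. EPHA2 in FGFR2 WT falls from 3.35 to 0.59 with FIIN-3 and to 2.79 with trametinib, and EPHA4 in the same line rises from 3.23 to 4.40 with FIIN-3 and stays at 3.09 with trametinib.

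Palbociclib changed EPHA2 little. Added to fulvestrant and FGF2, it left 3.59 ± 0.21 in M538I, 3.27 ± 0.46 in N550K, 3.12 ± 0.63 in FGFR2 WT, 2.75 ± 0.40 in FGFR1, 2.20 ± 1.16 in K660N, 2.05 ± 0.48 in GFP and 1.18 ± 0.84 in parental cells. The change was -0.05 ± 0.33 (adjusted p = 0.94) in the control lines, -0.37 ± 0.25 (0.38) in FGFR1 and -0.36 ± 0.14 (0.038) in the FGFR2 lines. In these classes 25.3%, 12.7% and 35% of genes were called. The FGFR2 value was -0.31 (adjusted p = 0.05) with the low MT-RNR2 libraries left out and -0.19 (adjusted p = 0.40) with the title range block, either of which ends the call. All lines overlapped between the arms.

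EPHA4 was highest in the control lines and lower in the lines with FGFR2 or FGF3 under DMSO. The order was 4.29 ± 0.24 in GFP, 4.20 ± 0.32 in parental cells, 3.69 ± 0.47 in FGFR1, 3.53 ± 0.34 in FGFR2 WT, 3.41 ± 0.32 in M538I, 3.39 ± 0.38 in K660N, 2.77 ± 0.57 in N550K and 0.86 ± 1.04 in FGF3. CPM values were 15.3, 17.99 and 24.8 in GFP, 12.7, 17.7 and 22.2 in parental cells, 6.68, 12.003 and 12.9 in FGFR2 WT, 6.60, 8.71, 10.5, 10.9 and 12.6 in M538I, 6.70, 9.37 and 14.2 in K660N and 3.98, 4.59 and 10.5 in N550K. In each of the 4 FGFR2 lines all libraries were below all GFP libraries, as were 0.506% of genes in M538I, 0.227% in FGFR2 WT, 0.724% in N550K and 0.582% in K660N, while parental and FGFR1 libraries overlapped GFP.

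Against GFP, EPHA4 was lower by the test in N550K, -1.59 ± 0.30 (adjusted p = 0.014), where 1.6% of genes were called, and in K660N, -0.98 ± 0.22 (adjusted p = 0.029). With the low MT-RNR2 libraries left out these were -1.73 (adjusted p = 0.00057) and -0.97 (adjusted p = 0.013). All comparisons with GFP under DMSO share the same GFP libraries, among them that of the FGF3 line, from which EPHA4 was chosen. The tests are therefore not independent of that choice. The other lines were not past the threshold, at -0.94 ± 0.23 (adjusted p = 0.24) in M538I, -0.84 ± 0.22 (adjusted p = 0.60) in FGFR2 WT, -0.61 ± 0.24 (adjusted p = 0.98) in FGFR1 and -0.12 ± 0.20 (adjusted p = 0.78) in parental cells, with 0.0159%, 0.00808%, 0.00787% and 0% of genes called. In parental cells, where edgeR called 0 genes, 1898 had an unadjusted p under 0.05 and DESeq2 called 1.32% of genes. M538I passed with DESeq2, -0.93 (adjusted p = 0.015). The estrogen receptor gene ESR1 moved with EPHA4 here, at -1.64 ± 0.25 (adjusted p = 0.004) in N550K and -0.73 ± 0.22 (adjusted p = 0.14) in K660N; its part in the EPHA4 difference was not tested.

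FGF2 lowered EPHA4 in FGFR1 and the FGFR2 lines. Under FGF2 the order was 4.08 ± 0.23 in GFP, 3.97 ± 0.23 in parental cells, 3.08 ± 0.24 in K660N, 3.02 ± 0.21 in FGFR1, 2.93 ± 0.41 in M538I, 2.89 ± 0.40 in FGFR2 WT and 2.33 ± 0.43 in N550K. FGFR2 WT went from 6.68, 12.003 and 12.9 CPM under DMSO to 4.22, 6.91 and 9.73, and FGFR1 from 7.20, 9.19, 13.99, 15.5 and 16.2 to 5.75, 7.24 and 8.41; the arms overlapped in all 7 lines. The log2 fold change was -0.26 ± 0.12 (adjusted p = 0.20) in the control lines, -0.84 ± 0.23 (0.015) in FGFR1 and -0.54 ± 0.13 (0.00088) in the FGFR2 lines. The FGF2 effect differed from that in the control lines by -0.56 ± 0.24 (adjusted p = 0.19) in FGFR1 and -0.27 ± 0.20 (adjusted p = 0.53) in the FGFR2 lines, so a difference between classes was not shown. With fulvestrant present the receptor line classes fell, and the control lines too; whether the fall was larger than without fulvestrant was not tested. Under fulvestrant alone EPHA4 stood at 4.70 ± 0.16 in GFP, 4.56 ± 0.27 in parental cells, 4.41 ± 0.24 in FGFR1, 4.20 ± 0.25 in FGFR2 WT, 3.93 ± 0.22 in M538I, 3.40 ± 0.25 in K660N, 3.03 ± 0.20 in N550K and 2.06 ± 0.05 in FGF3. With FGF2 added the levels were 4.38 ± 0.23 in GFP, 4.10 ± 0.31 in parental cells, 3.36 ± 0.32 in K660N, 3.23 ± 0.23 in FGFR2 WT, 2.93 ± 0.33 in FGFR1, 2.67 ± 0.63 in M538I and 2.28 ± 0.99 in N550K. FGFR1 went from 15.8, 22.4 and 23.4 to 4.46, 6.78 and 9.76 CPM and M538I from 10.3, 15.01 and 16.4 to 2.22, 5.28 and 9.27. The arms did not overlap in FGFR1, FGFR2 WT and M538I, where 3.84%, 2.75% and 1.79% of genes fell without overlap. The change was -0.41 ± 0.11 (adjusted p = 0.014) in the control lines, -1.64 ± 0.20 (1.9e-05) in FGFR1 and -0.76 ± 0.15 (0.0001) in the FGFR2 lines; the control line value was -0.40 (adjusted p = 0.058) with no minimum count. By line the means moved least in K660N, by -0.05.

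Fulvestrant alone gave EPHA4 higher means in all 7 lines with FGF2 arms, the least in K660N (0.01) and the most in FGFR1 (0.73), without a call. The change against DMSO was 0.40 ± 0.12 (adjusted p = 0.10) in the control lines, 0.74 ± 0.24 (0.62) in FGFR1 and 0.36 ± 0.12 (0.075) in the FGFR2 lines. In FGFR2 WT all fulvestrant libraries (13.7, 18.1 and 20.98 CPM) were above all DMSO libraries (6.68, 12.003 and 12.9 CPM), as were 0.174% of genes. The FGFR2 value passed with DESeq2, 0.35 (adjusted p = 0.048).

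FIIN-3 raised EPHA4 again where FGF2 had lowered it. Added to FGF2 it gave 4.36 ± 0.28 in GFP, 4.27 ± 0.18 in parental cells, 4.09 ± 0.15 in FGFR2 WT, 3.82 ± 0.37 in FGFR1, 3.75 ± 0.23 in K660N, 3.72 ± 0.40 in M538I and 2.79 ± 0.37 in N550K. The change was 0.31 ± 0.11 (adjusted p = 0.034) in the control lines, 0.91 ± 0.20 (0.0022) in FGFR1 and 0.88 ± 0.12 (1e-08) in the FGFR2 lines. The control line value was 0.31 (adjusted p = 0.17) with no minimum count and 0.26 (adjusted p = 0.16) with the title range block, either of which ends that call. Added to fulvestrant and FGF2 it gave 4.52 ± 0.11 in GFP, 4.40 ± 0.11 in FGFR2 WT, 4.37 ± 0.22 in parental cells, 4.19 ± 0.34 in FGFR1, 4.09 ± 0.39 in M538I, 3.55 ± 0.84 in K660N and 3.08 ± 0.56 in N550K. The change was 0.20 ± 0.11 (adjusted p = 0.20) in the control lines, 1.40 ± 0.23 (0.00012) in FGFR1 and 0.99 ± 0.17 (1.1e-06) in the FGFR2 lines. FGFR2 WT went from 6.35, 8.42 and 10.7 to 18.2, 19.9 and 22.9 CPM, and FGFR1 from 4.46, 6.78 and 9.76 to 10.8, 18.8 and 21.7, in both without overlap, as in 4.92% and 4.42% of genes. Against fulvestrant alone the triple combination stood at -0.17 ± 0.10 (adjusted p = 0.38) in the control lines, -0.21 ± 0.20 (adjusted p = 0.97) in FGFR1 and 0.25 ± 0.11 (adjusted p = 0.1) in the FGFR2 lines, none past the threshold. In FGFR1, 0.0489% of genes were called.

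Trametinib did not change EPHA4 past the threshold on the background of fulvestrant and FGF2. The levels were 4.15 ± 0.18 in GFP, 3.95 ± 0.27 in parental cells, 3.29 ± 0.32 in FGFR1, 3.09 ± 0.39 in FGFR2 WT, 3.06 ± 0.68 in M538I, 2.78 ± 0.69 in N550K and 2.78 ± 0.90 in K660N. The change was -0.22 ± 0.11 (adjusted p = 0.13) in the control lines, 0.41 ± 0.21 (0.24) in FGFR1 and 0.12 ± 0.19 (0.68) in the FGFR2 lines. Set against FIIN-3, trametinib left EPHA4 lower in all 3 classes, at -0.42 ± 0.10 (adjusted p = 0.0011) in the control lines, -1.04 ± 0.20 (0.00059) in FGFR1 and -0.87 ± 0.17 (2.7e-05) in the FGFR2 lines. In FGFR2 WT the values were 5.01, 7.79 and 10.9 CPM with trametinib and 18.2, 19.9 and 22.9 with FIIN-3, with no overlap, as in 5.05% of genes. Fulvestrant with FGF2 and trametinib stayed below fulvestrant alone, at -0.61 ± 0.10 (adjusted p = 1.3e-05) in the control lines, -1.24 ± 0.18 (6e-05) in FGFR1 and -0.62 ± 0.15 (0.0011) in the FGFR2 lines. Palbociclib gave 0.13 ± 0.12 (adjusted p = 0.45) in the control lines, -0.11 ± 0.25 (0.82) in FGFR1 and 0.24 ± 0.16 (0.27) in the FGFR2 lines and levels of 4.55 ± 0.36 in GFP, 4.25 ± 0.17 in parental cells, 3.34 ± 0.33 in FGFR2 WT, 3.29 ± 0.98 in K660N, 3.18 ± 0.33 in M538I, 2.87 ± 0.33 in FGFR1 and 2.61 ± 0.57 in N550K.

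EFNA1, the ligand, differed little between the lines under DMSO. The order was 7.81 ± 0.38 in parental cells, 7.81 ± 0.58 in M538I, 7.72 ± 0.25 in FGF3, 7.70 ± 0.30 in FGFR1, 7.68 ± 0.59 in FGFR2 WT, 7.35 ± 0.52 in N550K, 7.34 ± 0.29 in GFP and 7.22 ± 0.19 in K660N. No line was called against GFP: the largest values were 0.47 ± 0.22 (adjusted p = 0.33) in parental cells and 0.56 ± 0.30 (adjusted p = 0.61) in M538I, and K660N was at -0.18 ± 0.19 (adjusted p = 0.72). All lines overlapped GFP, whose CPM values were 117.02, 165.5 and 195.1. In N550K the value turned from 0.08 ± 0.28 (adjusted p = 0.94) to -0.34 (adjusted p = 0.22) with the low MT-RNR2 libraries left out.

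FGF2 lowered EFNA1 in FGFR1; it was also called lower in the control and FGFR2 lines, where the calls depend on the processing. Under FGF2 the order was 7.44 ± 0.31 in M538I, 7.19 ± 0.28 in N550K, 7.09 ± 0.31 in FGFR2 WT, 7.09 ± 0.41 in parental cells, 7.08 ± 0.25 in GFP, 6.96 ± 0.25 in K660N and 6.68 ± 0.23 in FGFR1. FGFR1 went from 170.9, 174.2, 207.4, 217.7 and 284.9 CPM under DMSO to 82.3, 99.4 and 134.01 under FGF2, with no overlap, as did 5.02% of genes; the other lines overlapped. The change was -0.52 ± 0.15 (adjusted p = 0.034) in the control lines, -1.09 ± 0.20 (0.0018) in FGFR1 and -0.40 ± 0.12 (0.0057) in the FGFR2 lines. The control line value was -0.48 (adjusted p = 0.071) with no minimum count, and the FGFR2 value -0.19 (adjusted p = 0.13) with the low MT-RNR2 libraries left out; 6 of those libraries were DMSO libraries of WT, M538I or N550K. With the range of title numbers as a block, both calls were lost, at -0.44 (adjusted p = 0.063) in the control lines and -0.10 (adjusted p = 0.53) in the FGFR2 lines; the FGF2 and DMSO arms share 2 of these ranges. The FGF2 effect in FGFR1 differed from that in the control lines by -0.53 ± 0.25 (adjusted p = 0.24), and that in the FGFR2 lines by 0.13 ± 0.20 (adjusted p = 0.79). With fulvestrant, EFNA1 stood at 8.15 ± 0.39 in FGFR1, 8.11 ± 0.31 in GFP, 8.10 ± 0.23 in FGFR2 WT, 8.05 ± 0.14 in parental cells, 7.79 ± 0.17 in FGF3, 7.77 ± 0.27 in M538I, 7.34 ± 0.53 in N550K and 7.27 ± 0.15 in K660N. FGF2 on top of it gave 7.59 ± 0.44 in parental cells, 7.58 ± 0.33 in M538I, 7.45 ± 0.30 in GFP, 7.39 ± 0.28 in N550K, 7.34 ± 0.29 in FGFR2 WT, 7.26 ± 0.25 in FGFR1 and 7.03 ± 0.09 in K660N. The change was -0.55 ± 0.12 (adjusted p = 0.0015) in the control lines, -0.96 ± 0.17 (0.00047) in FGFR1 and -0.31 ± 0.10 (0.011) in the FGFR2 lines. With the block the FGFR2 value was -0.13 (adjusted p = 0.40), which ends that call. FGFR2 WT went from 217.8, 275.6 and 341.98 to 126.98, 155.3 and 211.97 CPM without overlap, as in 2.75% of genes, while N550K had a mean difference of 0.05. Fulvestrant alone against DMSO gave 0.49 ± 0.14 (adjusted p = 0.069) in the control lines, 0.50 ± 0.25 (0.63) in FGFR1 and 0.07 ± 0.13 (0.77) in the FGFR2 lines; the control line value passed with DESeq2, 0.47 (adjusted p = 0.033).

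FIIN-3 raised EFNA1 in all 3 line classes. Added to FGF2 it gave 8.04 ± 0.49 in M538I, 7.96 ± 0.50 in parental cells, 7.94 ± 0.27 in GFP, 7.93 ± 0.31 in FGFR2 WT, 7.91 ± 0.40 in K660N, 7.75 ± 0.41 in FGFR1 and 7.49 ± 0.16 in N550K. FGFR1 went from 82.3, 99.4 and 134.01 to 160.5, 194.6 and 334.8 CPM and GFP from 110.7, 126.4 and 180.9 to 196.8, 235.9 and 316.5, both without overlap, as in 5.25% and 2.24% of genes. The change was 0.89 ± 0.14 (adjusted p = 1.9e-05) in the control lines, 1.12 ± 0.18 (0.00017) in FGFR1 and 0.71 ± 0.10 (4.9e-08) in the FGFR2 lines. With fulvestrant present the levels were 8.17 ± 0.37 in FGFR1, 8.15 ± 0.22 in parental cells, 8.15 ± 0.29 in M538I, 8.12 ± 0.17 in GFP, 8.12 ± 0.21 in FGFR2 WT, 7.89 ± 0.63 in K660N and 7.81 ± 0.43 in N550K. The change was 0.59 ± 0.12 (adjusted p = 0.00029) in the control lines, 0.97 ± 0.17 (0.0002) in FGFR1 and 0.69 ± 0.10 (1.5e-08) in the FGFR2 lines. Against fulvestrant alone the FGFR2 lines then stood higher, by 0.40 ± 0.11 (adjusted p = 0.0045), which was 0.33 (adjusted p = 0.057) with the title range block, while the control lines and FGFR1 were not past the threshold, at 0.08 ± 0.09 (adjusted p = 0.73) and 0.03 ± 0.19 (adjusted p = 0.99); the difference between the classes was not tested.

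Trametinib raised EFNA1 as well. On fulvestrant and FGF2 it gave 8.39 ± 0.44 in M538I, 8.29 ± 0.30 in N550K, 8.03 ± 0.25 in FGFR2 WT, 7.92 ± 0.19 in GFP, 7.90 ± 0.14 in FGFR1, 7.85 ± 0.15 in parental cells and 7.78 ± 0.39 in K660N. The change was 0.32 ± 0.11 (adjusted p = 0.027) in the control lines, 0.64 ± 0.10 (0.0003) in FGFR1 and 0.82 ± 0.09 (9.1e-11) in the FGFR2 lines. The rise in the FGFR2 lines exceeded that in the control lines by 0.51 ± 0.15 (adjusted p = 0.022), and the rise in FGFR1 did so by 0.31 ± 0.18 (adjusted p = 0.38). Beside fulvestrant alone the classes differed. Pooled levels with FGF2 and trametinib added, and without, were 7.89 ± 0.17 and 8.08 ± 0.24 in the control lines. They were 7.90 ± 0.14 and 8.15 ± 0.39 in FGFR1, and 8.12 ± 0.41 and 7.62 ± 0.46 in the FGFR2 lines. The control lines were called lower there, a call lost with no minimum count and with the title range block. Trametinib minus FIIN-3 was -0.27 ± 0.08 (adjusted p = 0.007) in the control lines, -0.38 ± 0.15 (0.053) in FGFR1 and 0.13 ± 0.11 (0.31) in the FGFR2 lines. For EFNA1, unlike for both receptors, the FGFR2 lines were thus not past the threshold between the inhibitors; for EPHA2 and EPHA4 they were. Palbociclib on fulvestrant and FGF2 gave 8.12 ± 0.24 in parental cells, 7.87 ± 0.20 in GFP, 7.85 ± 0.54 in N550K, 7.83 ± 0.38 in FGFR2 WT, 7.79 ± 0.34 in M538I, 7.58 ± 0.18 in FGFR1 and 7.51 ± 0.43 in K660N. The change was 0.42 ± 0.12 (adjusted p = 0.0091) in the control lines, 0.28 ± 0.13 (0.21) in FGFR1 and 0.43 ± 0.11 (0.0011) in the FGFR2 lines.

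**Figure D4:**
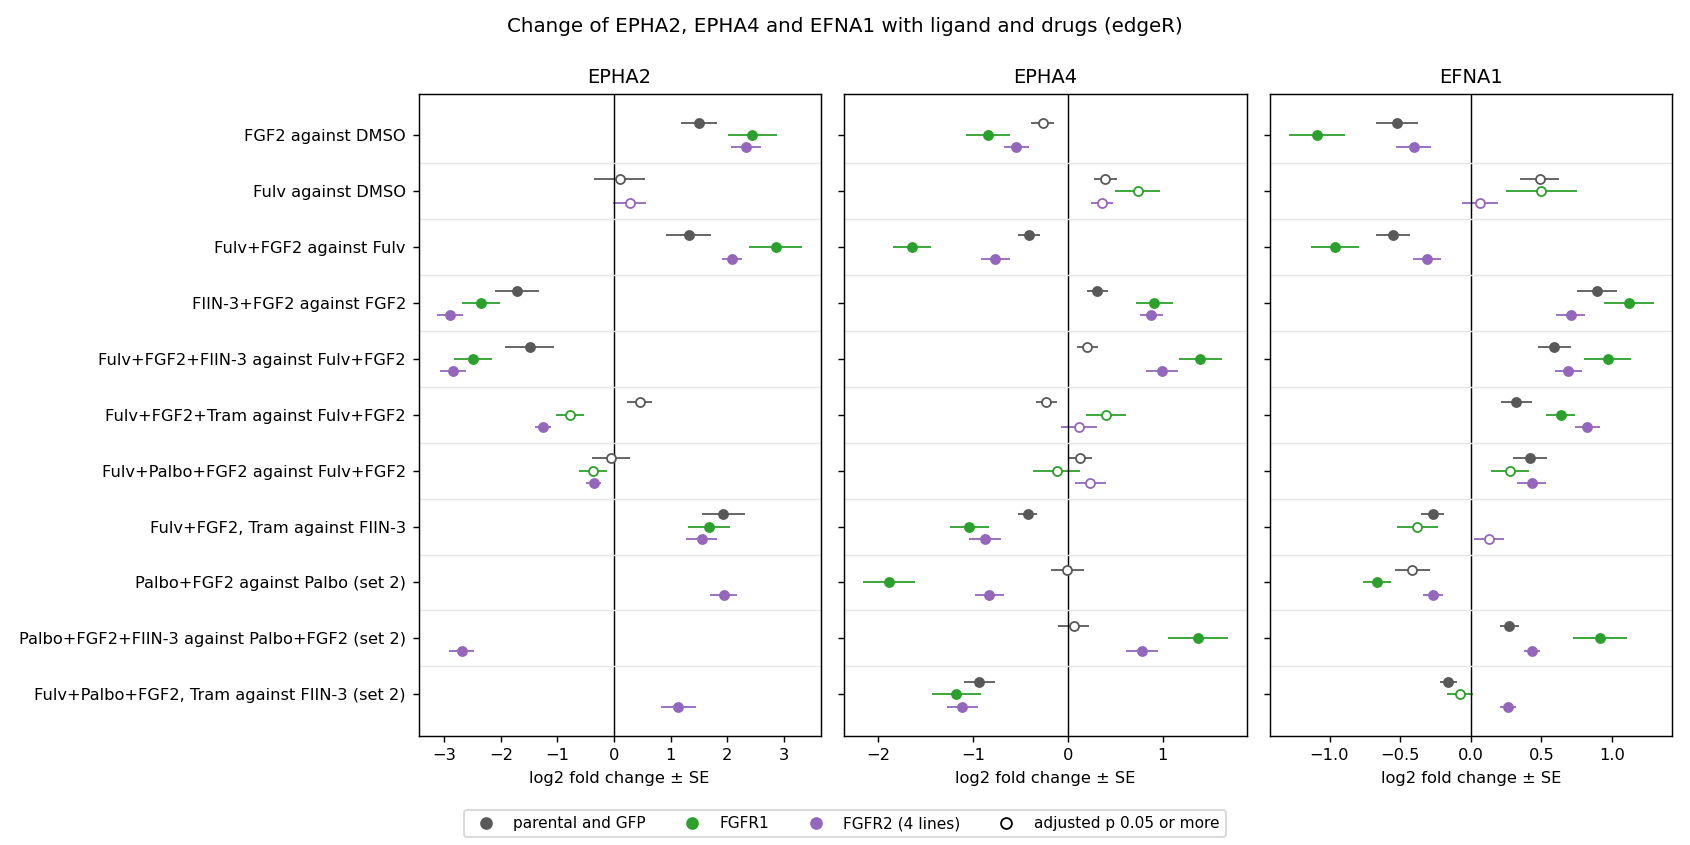
Log2 fold changes of the 3 genes ± SE in comparisons of set 1 and, where marked, of set 2, for the control lines, FGFR1 and the FGFR2 lines. Filled points have an adjusted p under 0.05 and white points do not. The values named here are of set 1. With FGF2 EPHA2 lies above 0 (1.50, 2.45 and 2.33) and EFNA1 below 0 (-0.52, -1.09 and -0.40); with FIIN-3 on FGF2 each is on the other side.

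The FGF3 line, which secretes its own ligand, had high EPHA2 and low EPHA4 under DMSO. EPHA4 was at 0, 0, 0.758, 0.940 and 4.83 CPM in its 5 DMSO libraries and at 15.3, 17.99 and 24.8 in GFP, with no overlap, as in 5.43% of genes. The counts behind the FGF3 values were 0 to 6 reads, and the 2 libraries at 0 allow up to 4.11 and 0.826 CPM. The fitted difference was -4.07 ± 0.59 for EPHA4, 3.22 ± 0.55 for EPHA2 and 0.44 ± 0.22 for EFNA1, given without a test, in a comparison where 7.18% of genes were past the threshold and the median over all genes tested was -0.11. With the low MT-RNR2 libraries left out that median was -0.01, and the values were -4.10, 3.08 and 0.41. Leaving out replicate 3, the library at 4.83 CPM, moved the EPHA4 value to -5.29. Under fulvestrant EPHA4 in this line was at 2.996, 3.11, 3.24 and 3.30 CPM, inside the range under DMSO.

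FIIN-3 without added FGF2 raised the ligand and lowered EPHA2 in the FGF3 line. EFNA1 went from 175.5, 191.6, 198.4, 227.7 and 272.2 CPM under DMSO to 304.6, 371.1 and 521.3 with FIIN-3, and from 202.2, 208.3, 214.6 and 262.6 under fulvestrant to 354.3, 397.3 and 493.1 with both, each without overlap, as in 2.88% and 3.08% of genes. The changes were 0.82 ± 0.16 (adjusted p = 0.0019) and 0.90 ± 0.13 (adjusted p = 2.4e-05), where 10.4% and 13.1% of genes were called. EPHA2 went from 2.74, 3.03, 5.64, 6.88 and 12.9 to 1.01, 2.05 and 2.45 CPM with FIIN-3 and from 3.63, 5.49, 6.74 and 8.11 to 0.544, 1.74 and 2.58 on fulvestrant, also without overlap, as in 2.54% and 5.71% of genes. On fulvestrant the change was -1.92 ± 0.47 (adjusted p = 0.0079); without fulvestrant EPHA2 was under the minimum count, and with no minimum it was -1.56 ± 0.50 (adjusted p = 0.039). EPHA4 was at 1.81, 3.90 and 4.56 CPM with FIIN-3, a fitted difference from DMSO of 1.77 ± 0.65 with no minimum count. That difference is given without a test, since EPHA4 was chosen by its low level in those DMSO libraries. On fulvestrant FIIN-3 changed EPHA4 by 0.49 ± 0.41 (adjusted p = 0.50). Trametinib on fulvestrant gave -0.53 ± 0.35 (adjusted p = 0.42) for EPHA2 (2.30 ± 0.51), 0.46 ± 0.14 (adjusted p = 0.051) for EFNA1 (8.26 ± 0.28) and 0.78 ± 0.38 (adjusted p = 0.26) for EPHA4 (2.61 ± 0.58), with 7.43% of genes called. The EFNA1 value passed with DESeq2, 0.46 (adjusted p = 0.037), and without fulvestrant replicate 4, 0.55 (adjusted p = 0.023). DUSP6 fell with FIIN-3, with a change of -4.09 ± 0.38 (adjusted p = 7.8e-08), and with trametinib, with a change of -5.90 ± 0.35 (adjusted p = 1.5e-09). Fulvestrant alone gave -0.10 ± 0.44 (adjusted p = 1.00) for EPHA2 and 0.02 ± 0.14 (adjusted p = 1.00) for EFNA1, with 0% of genes called by edgeR (410 genes at an unadjusted p under 0.05, and 3 called by DESeq2). Palbociclib on fulvestrant left levels of 3.10 ± 0.70 for EPHA2, 2.09 ± 0.69 for EPHA4 and 8.30 ± 0.15 for EFNA1.

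Set 2 repeated the FGF2 and FIIN-3 comparisons on palbociclib in other, shallower libraries. EPHA2 under palbociclib stood at 2.13 ± 0.44 in FGF3, 1.85 ± 0.99 in K660N, 1.76 ± 0.60 in N550K, 1.52 ± 0.86 in M538I, 1.09 ± 0.61 in FGFR2 WT, 1.00 ± 1.04 in FGFR1, 0.97 ± 0.63 in parental cells and 0.45 ± 0.35 in GFP. With FGF2 added it stood at 3.73 ± 0.50 in M538I, 3.59 ± 0.30 in N550K, 3.34 ± 0.43 in FGFR2 WT, 2.50 ± 0.45 in K660N, 2.47 ± 0.91 in FGFR1, 2.02 ± 1.00 in parental cells and 1.36 ± 0.81 in GFP. M538I went from 0, 2.27 and 4.32 to 8.62, 10.6, 11.03, 11.7 and 23.02 CPM. FGF2 raised EPHA2 in the FGFR2 lines, by 1.94 ± 0.24 (adjusted p = 1.3e-09), where 38% of genes were called. The arms did not overlap in FGFR2 WT, M538I and N550K, as in 4.61%, 3.28% and 2.62% of genes, and overlapped in K660N. In FGFR1 and the control lines EPHA2 was under the minimum count; with none the values were 1.77 ± 0.48 (adjusted p = 0.0036) and 1.82 ± 0.56 (adjusted p = 0.06). FIIN-3 added to palbociclib and FGF2 left 1.61 ± 0.53 in N550K, 1.36 ± 0.47 in FGFR2 WT, 1.22 ± 0.67 in FGFR1, 1.11 ± 0.39 in K660N, 1.08 ± 0.45 in GFP, 0.89 ± 0.67 in parental cells and 0.45 ± 0.54 in M538I. The change in the FGFR2 lines was -2.70 ± 0.23 (adjusted p = 4.7e-16), where 54.1% of genes were called. No FGFR2 line overlapped, as in 5.76%, 6.12%, 4.67% and 4.53% of genes in WT, M538I, N550K and K660N. In FGFR1 the change with no minimum count was -1.76 ± 0.50 (adjusted p = 0.0099).

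EPHA4 fell with FGF2 on palbociclib in FGFR1 and the FGFR2 lines. Under palbociclib levels were 4.19 ± 0.23 in FGFR1, 4.04 ± 0.36 in GFP, 3.95 ± 0.21 in FGFR2 WT, 3.91 ± 0.39 in M538I, 3.73 ± 0.72 in parental cells, 3.57 ± 0.48 in K660N, 2.66 ± 0.29 in N550K and 1.78 ± 0.32 in FGF3. With FGF2 they were 4.10 ± 0.18 in GFP, 3.81 ± 0.27 in parental cells, 3.26 ± 0.48 in K660N, 2.97 ± 0.27 in FGFR2 WT, 2.38 ± 0.64 in FGFR1, 2.28 ± 1.33 in M538I and 2.23 ± 0.34 in N550K. FGFR1 went from 12.7, 17.5 and 21.1 to 1.71, 4.50 and 7.69 CPM without overlap, as in 3.9% of genes. The change was -0.00 ± 0.17 (adjusted p = 1.00) in the control lines, -1.88 ± 0.28 (1.9e-05) in FGFR1 and -0.83 ± 0.15 (1.2e-05) in the FGFR2 lines. In these classes 1.08%, 24.8% and 38% of genes were called. FIIN-3 then gave 4.12 ± 0.33 in GFP, 3.93 ± 0.43 in parental cells, 3.86 ± 0.27 in FGFR2 WT, 3.84 ± 0.30 in M538I, 3.68 ± 0.34 in FGFR1, 3.63 ± 0.33 in K660N and 2.49 ± 0.97 in N550K. The change was 0.06 ± 0.16 (adjusted p = 0.88) in the control lines, 1.37 ± 0.32 (0.0055) in FGFR1 and 0.78 ± 0.17 (5.7e-05) in the FGFR2 lines. Here 9.21%, 16.3% and 54.1% of genes were called.

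EFNA1 fell with FGF2 on palbociclib in FGFR1 and the FGFR2 lines and rose with FIIN-3 in all 3 classes. Levels under palbociclib were 7.82 ± 0.40 in parental cells, 7.78 ± 0.19 in FGF3, 7.65 ± 0.16 in K660N, 7.62 ± 0.42 in M538I, 7.61 ± 0.22 in FGFR1, 7.56 ± 0.09 in GFP, 7.36 ± 0.12 in FGFR2 WT and 7.35 ± 0.25 in N550K. Adding FGF2 gave 7.41 ± 0.11 in N550K, 7.41 ± 0.17 in K660N, 7.34 ± 0.09 in parental cells, 7.27 ± 0.14 in GFP, 7.19 ± 0.30 in M538I, 6.98 ± 0.11 in FGFR2 WT and 6.95 ± 0.08 in FGFR1. Adding FIIN-3 as well gave 7.84 ± 0.13 in K660N, 7.78 ± 0.26 in M538I, 7.77 ± 0.44 in FGFR1, 7.65 ± 0.07 in FGFR2 WT, 7.60 ± 0.18 in parental cells, 7.54 ± 0.19 in GFP and 7.51 ± 0.13 in N550K. FGFR1 went from 160.96, 187.3 and 253.5 to 116.9, 119.7 and 131.9 CPM without overlap, as in 3.9% of genes. The FGF2 change was -0.41 ± 0.12 (adjusted p = 0.14) in the control lines, -0.67 ± 0.10 (2.9e-05) in FGFR1 and -0.27 ± 0.07 (0.0024) in the FGFR2 lines; the control line value was -0.31 (adjusted p = 0.0026) without the 1 parental library that stands apart and -0.43 (adjusted p = 0.049) with DESeq2. The FIIN-3 change was 0.27 ± 0.07 (adjusted p = 0.0063) in the control lines, 0.92 ± 0.19 (0.0025) in FGFR1 and 0.44 ± 0.06 (1.6e-09) in the FGFR2 lines.

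Trametinib and FIIN-3 were also set against each other on fulvestrant, palbociclib and FGF2. With trametinib EPHA2 stood at 2.51 ± 0.36 in M538I, 2.47 ± 0.45 in FGFR2 WT, 2.35 ± 0.43 in FGFR1, 2.08 ± 0.67 in N550K, 1.41 ± 0.64 in GFP, 1.16 ± 1.12 in K660N and 1.11 ± 0.80 in parental cells. With FIIN-3 in its place EPHA2 stood at 2.04 ± 0.99 in N550K, 1.20 ± 0.59 in FGFR1, 1.06 ± 0.23 in K660N, 0.99 ± 0.36 in M538I, 0.90 ± 0.61 in FGFR2 WT, 0.60 ± 0.49 in parental cells and 0.51 ± 0.56 in GFP. Trametinib minus FIIN-3 was 1.14 ± 0.31 (adjusted p = 0.0017) in the FGFR2 lines; in FGFR1, with no minimum count, it was 1.55 ± 0.55 (adjusted p = 0.048), and in the control lines 1.49 ± 0.58 (adjusted p = 0.067). In the 3 classes 38.6%, 25.1% and 54.7% of genes were called. EPHA4 with trametinib stood at 3.60 ± 0.21 in GFP, 3.38 ± 0.50 in parental cells, 3.23 ± 0.56 in M538I, 3.06 ± 0.56 in FGFR1, 2.89 ± 0.66 in K660N, 2.54 ± 0.52 in FGFR2 WT and 2.29 ± 1.15 in N550K. EPHA4 with FIIN-3 stood at 4.48 ± 0.36 in parental cells, 4.26 ± 0.08 in FGFR2 WT, 4.24 ± 0.34 in GFP, 4.18 ± 0.30 in FGFR1, 4.17 ± 0.19 in M538I, 4.02 ± 0.45 in K660N and 3.02 ± 0.30 in N550K. The difference was -0.93 ± 0.16 (adjusted p = 1.7e-05) in the control lines, -1.17 ± 0.26 (0.00078) in FGFR1 and -1.11 ± 0.17 (6.7e-08) in the FGFR2 lines. EFNA1 with trametinib stood at 8.31 ± 0.13 in N550K, 8.24 ± 0.24 in FGFR2 WT, 8.21 ± 0.27 in M538I, 8.14 ± 0.14 in K660N, 8.01 ± 0.14 in parental cells, 7.98 ± 0.14 in FGFR1 and 7.74 ± 0.07 in GFP. EFNA1 with FIIN-3 stood at 8.09 ± 0.14 in K660N, 8.06 ± 0.11 in parental cells, 8.06 ± 0.17 in FGFR2 WT, 8.06 ± 0.20 in M538I, 8.05 ± 0.13 in FGFR1, 8.02 ± 0.11 in GFP and 7.74 ± 0.14 in N550K. The difference was -0.16 ± 0.06 (adjusted p = 0.033) in the control lines, -0.08 ± 0.09 (0.61) in FGFR1 and 0.26 ± 0.06 (0.00014) in the FGFR2 lines. As in set 1, trametinib left EPHA2 higher and EPHA4 lower than FIIN-3 in the FGFR2 lines. EFNA1 was called higher with trametinib in the FGFR2 lines here, whereas in set 1 its difference was not past the threshold.

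In the FGF3 line of set 2, FIIN-3 raised EFNA1 from 88.9, 150.8 and 175.8 CPM in the control group to 236.9, 264.2, 282.8, 289.1 and 294.5, without overlap, by 0.92 ± 0.16 (adjusted p = 0.0016). Of all genes 2.68% rose without overlap, and 6.72% were called. EPHA4 went from 0.683, 2.94 and 6.14 to 6.41, 6.57, 7.10, 7.13 and 9.81 CPM, without overlap, as in 2.68% of genes. The change was 1.27 ± 0.42 (adjusted p = 0.092), and 1.38 (adjusted p = 0.023) without the 1 control library that stands apart. EPHA2 went from 2.63, 4.34 and 8.08 to 0, 0.838, 1.60, 1.77 and 2.62 CPM and, with no minimum count, changed by -1.65 ± 0.62 (adjusted p = 0.16). Levels with palbociclib and FIIN-3 were 0.52 ± 0.71 for EPHA2, 3.02 ± 0.42 for EPHA4 and 8.32 ± 0.10 for EFNA1. With fulvestrant, palbociclib and FIIN-3 they were 1.41 ± 0.77, 2.82 ± 0.57 and 8.43 ± 0.30. With trametinib in place of FIIN-3 they were 1.59 ± 0.64, 2.98 ± 0.54 and 8.06 ± 0.14. FIIN-3 alone in the other lines of set 2 had no solvent group beside it. EPHA2 stood at 1.18 ± 0.35 in M538I, 1.12 ± 0.71 in FGF3, 1.03 ± 0.66 in GFP, 0.93 ± 0.75 in FGFR2 WT, 0.82 ± 0.86 in FGFR1, 0.79 ± 0.43 in N550K, 0.50 ± 0.59 in parental cells and 0.31 ± 0.48 in K660N. EPHA4 stood at 4.13 ± 0.17 in GFP, 4.09 ± 0.33 in parental cells, 3.87 ± 0.36 in M538I, 3.74 ± 0.23 in FGFR2 WT, 3.48 ± 0.65 in FGFR1, 3.38 ± 0.42 in K660N, 3.19 ± 0.36 in N550K and 3.06 ± 0.22 in FGF3. EFNA1 stood at 8.10 ± 0.13 in FGF3, 7.87 ± 0.16 in K660N, 7.70 ± 0.12 in M538I, 7.66 ± 0.24 in N550K, 7.63 ± 0.43 in FGFR1, 7.57 ± 0.13 in parental cells, 7.47 ± 0.10 in GFP and 7.44 ± 0.18 in FGFR2 WT. In K660N 4 of 6 libraries held no EPHA2 read.

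**Figure D5:**
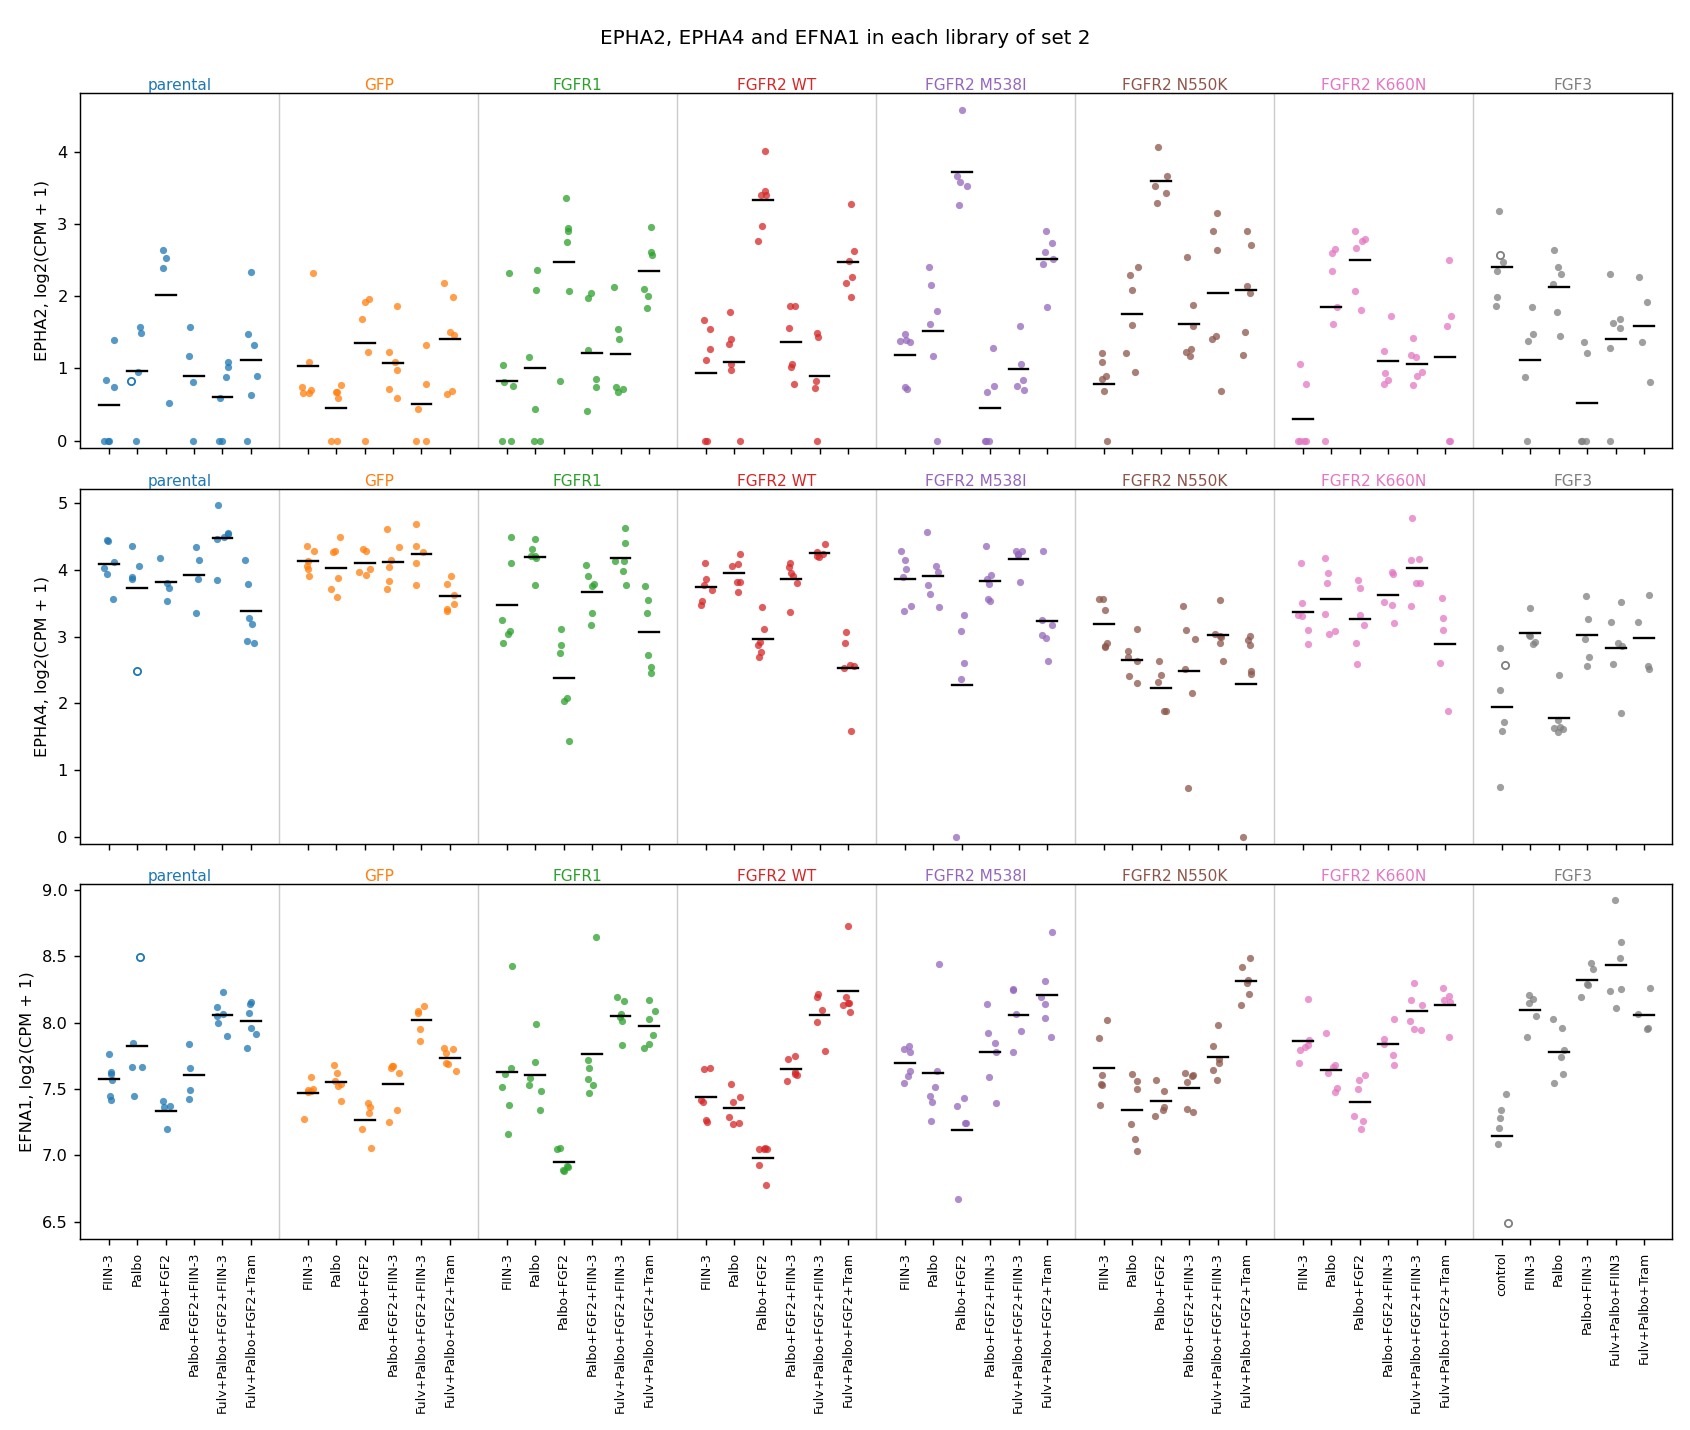
Level of EPHA2, EPHA4 and EFNA1, in log2(CPM + 1), in every set 2 library by line and treatment; points are libraries, open circles are libraries that stand apart and black lines are group means. EPHA2 is highest in M538I with palbociclib and FGF2 (3.73), and EPHA4 is lowest in the FGF3 line with palbociclib (1.78).

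The other Eph and ephrin genes, 19 in number, were measured in the same fits, with 7 to 11 of them over the minimum count in a comparison. Under FGF2 against DMSO, 1 of 9 was higher and 0 lower in the control lines, 2 higher and 1 lower of 8 in FGFR1, and 4 higher and 0 lower of 10 in the FGFR2 lines. Of all genes 5.96%, 31.6% and 46.2% were called in these classes, so the counts in FGFR1 and the FGFR2 lines are near the background. EPHA1, an EphA receptor of epithelia, rose by 1.31 ± 0.25 (adjusted p = 0.0022) in FGFR1 and 0.76 ± 0.16 in the FGFR2 lines. EPHB4, a receptor for ephrin-B2, rose by 0.68 ± 0.13 in the FGFR2 lines, and EPHB3 rose in all 3 classes, by 0.34 to 0.57. The second ligand in abundance, EFNA4, moved as EFNA1 did in FGFR1, with a change of -0.71 ± 0.20 (adjusted p = 0.018) under FGF2. FIIN-3 on FGF2 lowered EPHA1, EPHB3 and EPHB4 in the FGFR2 lines, with changes of -0.75 ± 0.14, -0.49 ± 0.07 and -0.32 ± 0.10, and raised EFNA4 by 0.61 ± 0.09. Trametinib on fulvestrant and FGF2 lowered EPHB6, with changes of -1.42 ± 0.15, -1.15 ± 0.18 and -1.19 ± 0.13 in the control lines, FGFR1 and the FGFR2 lines, and lowered EPHB3 in all 3. Of the 48 comparisons planned at the outset, EPHA1, EPHB3, EFNA4 and EPHB6 were tested in 48 and EFNB2 in 34. EPHA1 was called higher 11 times and lower 10 times, EPHB3 10 and 13, EFNA4 9 and 6, EPHB6 0 and 12, and EFNB2 7 and 0. Over all 57 comparisons, with FGF3 against GFP left out, EPHA2 was called higher 15 times and lower 12 times, EPHA4 7 and 18 and EFNA1 21 and 11. EPHA2 passed the minimum count in 42 of the 57 and EPHA4 in 55. The share of all genes called ran from 0% to 57.8% by comparison, so these counts are a description. Many of these comparisons share libraries.

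A list of 21 genes whose products act beside or below Eph receptors had 20 members over the minimum count in the comparisons given here. Under FGF2, 1 was higher and 0 lower in the control lines, 6 higher and 1 lower in FGFR1, and 12 higher and 1 lower in the FGFR2 lines, where the median of the 20 was 0.33 and that of all genes tested was 0.00. Beside the 5.96%, 31.6% and 46.2% of all genes called in these classes, the counts in the control lines and FGFR1 are near the background. The genes that rose in both receptor classes included VAV2, a guanine nucleotide exchange factor (1.37 ± 0.31 in FGFR1 and 0.65 ± 0.18 in the FGFR2 lines), CBL, a ubiquitin ligase for receptor tyrosine kinases (0.98 ± 0.19 and 0.84 ± 0.18), ADAM10, a protease that cuts ephrins (1.09 ± 0.25 and 0.58 ± 0.13), and PTPN11, which encodes the phosphatase SHP2 (0.72 ± 0.20 and 0.50 ± 0.13). FIIN-3 on FGF2 lowered 6 and raised 4 of the 20 in the FGFR2 lines, a share near the 55.5% of all genes called. CBL and VAV2, with changes of -0.83 ± 0.10 and -0.83 ± 0.15, were among the former and VAV3, with 0.98 ± 0.13, among the latter. Trametinib on fulvestrant and FGF2 raised RHOA, the GTPase through which Eph receptors act on the cytoskeleton, by 0.76 ± 0.06, 0.54 ± 0.08 and 0.47 ± 0.06 in the control lines, FGFR1 and the FGFR2 lines.

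The genes whose group medians ran most like those of a member were found among 8875 genes with enough reads, over the 64 set 1 groups, and set beside their values over the 48 set 2 groups. These correlations are descriptions over groups that share lines, treatments and sequencing, and carry no p. For EPHA2 they included MFSD2A (r = 0.91 in set 1 and 0.86 in set 2), LAT2 (0.90 and 0.82), ERRFI1 (0.89 and 0.88) and IVL (0.88 and 0.90). For EPHA4 they were PREX1 (0.90 and 0.82), TENM3 (0.88 and 0.79), DST (0.86 and 0.79), DCP2 (0.85 and 0.80) and CPNE3 (0.84 and 0.70). For EFNA1 they were TMEM265 (0.87 and 0.73), DHRS3 (0.84 and 0.80), GRN (0.84 and 0.76), VAMP8 (0.84 and 0.76) and WDR45 (0.83 and 0.71). Between the members, r was -0.62 in set 1 and -0.63 in set 2 for EPHA2 and EPHA4, -0.44 and -0.39 for EPHA2 and EFNA1, and 0.12 and 0.10 for EPHA4 and EFNA1. With DUSP6, EPHA2 had r of 0.74 in both sets. With ESR1, r was -0.83 and -0.66 for EPHA2, and 0.73 and 0.75 for EPHA4.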

How the data were processed

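RNA of 647 T47D libraries was read by SMART-Seq2, a full-length method for small inputs, per the labels' protocols. The authors deposited 1 table of raw read counts per gene for all libraries; STAR and the build hg19 are named in the submitters' processing notes, and the counter, its annotation and its use of strand are not given in the sources used here. Their second deposited table holds log2(TPM + 1), of which the 45 set 1 DMSO columns were used and 602 were not.

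The genes, lists and comparisons were chosen with earlier results of these data known, and 9 of 57 comparisons were added after the data were seen. Counts were tested with edgeR 4.0.16 in R 4.3.3 (library sizes scaled by TMM, genes kept by filterByExpr at a minimum count of 10, the quasi-likelihood test, and line as a term where lines were pooled), with Benjamini-Hochberg adjustment over all genes tested and a threshold of 0.05. EPHA2 passed the minimum count in 42 of 57 comparisons, EPHA4 in 55 and EFNA1 in 57. SE is the log2 fold change over the square root of F. The fits were tested on simulated data. Alternatives were DESeq2 size factors, no minimum count, the DESeq2 1.42.0 Wald test, a block on title number range, leaving out low MT-RNR2 libraries (those that stand apart, with MT-RNR2 under 5% of counts, a rule chosen after the data were seen) and leaving out each library of arms of 5 or fewer. Levels are log2(CPM + 1), a pseudocount of 1, with library sizes scaled by TMM within a set. No 2 libraries of a group were alike within sampling noise: the smallest mean chi-square per gene was 2.64 over 1559 pairs.

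Named beside the 3 genes are the family and partner genes past the threshold, at most 4 in each direction by size with a mean log2 CPM of at least 3, the 5 genes with the highest Pearson r to each (1 of those for EPHA2 is not reported here), and DUSP6 and ESR1. Limits from counts of 0 are 3 reads per library and cover counting error only. Library totals, and with them precision, are given in the results. Promoters are RefSeq sequences on GRCh38.p14, matched by symbol for all 3 genes; no coordinates were converted.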

Additional observations from a re-analysis of the deposited data

Results flagged for a closer look

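Within groups of 4 to 6 libraries, 32 group values (9.52% of those tested) held a library far from the rest, by the gap to its nearest neighbour over the range of the group (Dixon's 95% critical value); chance gives about 1 in 20. Levels are log2(CPM + 1).

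For EPHA2 in set 1, replicate 1 of FGFR1 with fulvestrant was alone high at 2.14 (28 reads), the others lying from 0.19 to 0.85. In N550K with DMSO, replicate 4 was alone low at 0.53 (2 reads, a library that stands apart), the others lying from 2.02 to 2.49. In N550K with fulvestrant, FGF2 and FIIN-3, replicate 5 was alone high at 2.29 (20 reads), the others lying from 1.17 to 1.51.

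For EPHA2 in set 2, replicate 5 of GFP with FIIN-3 was alone high at 2.33 (8 reads), the others lying from 0.66 to 1.09. In parental cells with palbociclib and FGF2, replicate 3 was alone low at 0.53 (2 reads), the others lying from 2.39 to 2.64.

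For EPHA4 in set 1, replicate 6 of parental cells with fulvestrant was alone low at 4.06, the others lying from 4.54 to 4.79. In M538I with fulvestrant, replicate 4 was alone low at 3.50 (50 reads), the others lying from 3.92 to 4.12. In K660N with fulvestrant, FGF2 and trametinib, replicate 3 was alone low at 1.07 (2 reads, a library that stands apart), the others lying from 2.72 to 3.58. In K660N with fulvestrant, palbociclib and FGF2, replicate 4 was alone low at 1.35 (2 reads, a library that stands apart), the others lying from 3.41 to 4.13. In FGFR1 with FIIN-3 and FGF2, replicate 4 was alone low at 3.11 (63 reads), the others lying from 3.82 to 4.15. In M538I with FIIN-3 and FGF2, replicate 1 was alone low at 2.92 (16 reads), the others lying from 3.71 to 3.97.

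For EPHA4 in set 2, replicate 4 of parental cells with palbociclib was alone low at 2.49 (6 reads, a library that stands apart), the others lying from 3.86 to 4.36. In FGFR2 WT with fulvestrant, palbociclib, FGF2 and trametinib, replicate 4 was alone low at 1.58 (6 reads), the others lying from 2.53 to 3.07. In M538I with palbociclib and FGF2, replicate 1 was alone low at 0.00 (0 reads), the others lying from 2.37 to 3.33. In M538I with fulvestrant, palbociclib, FGF2 and FIIN-3, replicate 5 was alone low at 3.82 (48 reads), the others lying from 4.22 to 4.28. In M538I with fulvestrant, palbociclib, FGF2 and trametinib, replicate 3 was alone high at 4.28 (57 reads), the others lying from 2.64 to 3.25. In N550K with fulvestrant, palbociclib, FGF2 and trametinib, replicate 2 was alone low at 0.00 (0 reads), the others lying from 2.44 to 3.01. In FGF3 with palbociclib, replicate 4 was alone high at 2.42 (11 reads), the others lying from 1.58 to 1.76. In FGF3 with FIIN-3, replicate 5 was alone high at 3.43 (30 reads), the others lying from 2.89 to 3.02.

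For EFNA1 in set 1, replicate 4 of N550K with fulvestrant, palbociclib and FGF2 was alone high at 8.86 (2320 reads, a library that stands apart), the others lying from 7.29 to 7.83. In N550K with fulvestrant, replicate 3 was alone high at 8.38 (2060 reads, a library that stands apart), the others lying from 6.90 to 7.28. In K660N with FGF2, replicate 6 was alone high at 7.47 (1649 reads), the others lying from 6.83 to 6.92. In K660N with fulvestrant and FGF2, replicate 4 was alone high at 7.21 (1100 reads), the others lying from 6.95 to 7.05. In K660N with fulvestrant, FGF2 and FIIN-3, replicate 1 was alone low at 6.71 (a library that stands apart), the others lying from 7.83 to 8.41. In N550K with FIIN-3, replicate 2 was alone high at 8.34 (925 reads), the others lying from 7.77 to 7.94.

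For EFNA1 in set 2, replicate 3 of GFP with FIIN-3 was alone low at 7.27 (494 reads), the others lying from 7.48 to 7.59. In FGFR1 with palbociclib, FGF2 and FIIN-3, replicate 5 was alone high at 8.64 (1083 reads), the others lying from 7.47 to 7.72. In FGFR2 WT with fulvestrant, palbociclib, FGF2 and trametinib, replicate 2 was alone high at 8.73 (1283 reads), the others lying from 8.08 to 8.20. In M538I with palbociclib, replicate 4 was alone high at 8.44 (1124 reads), the others lying from 7.26 to 7.64. In M538I with palbociclib and FGF2, replicate 1 was alone low at 6.67 (79 reads), the others lying from 7.24 to 7.43. In K660N with FIIN-3, replicate 5 was alone high at 8.18 (1066 reads), the others lying from 7.69 to 7.87. In K660N with fulvestrant, palbociclib, FGF2 and trametinib, replicate 4 was alone low at 7.90 (436 reads), the others lying from 8.15 to 8.26.

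In 7 of these values the library was one that stands apart. M538I replicate 1 with palbociclib and FGF2 had a total of 689098 reads, among the shallowest, and was low for both EPHA4 and EFNA1; no cause was tested.

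The effect of trametinib on fulvestrant and FGF2 differed between line classes by the interaction test of edgeR, in comparisons added after the data were seen. For EPHA2 it was lower in FGFR1 than in the control lines by a difference of -1.24 (adjusted p = 0.024) and lower in the FGFR2 lines by a difference of -1.72 (adjusted p = 9.6e-07). For EFNA1 it was higher in the FGFR2 lines than in the control lines by 0.51 (adjusted p = 0.022).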

How the results depend on the processing

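Over the 57 comparisons, counting each gene under each alternative, 766 values kept their direction and their side of the threshold, 25 came past it, 16 were no longer past it and 11 changed sign. The 766 include FGF3 against GFP values, which had no test and were judged by sign and by a shift under the larger SD. They also include 1 list of genes most alike. A further 3 entries moved, 2 of them such lists and 1 an FGF3 against GFP value with a library left out. With DESeq2 size factors only EPHA2 in FGFR1 with trametinib changed, to past the threshold (-0.78). The DESeq2 test put past the threshold EPHA4 in M538I against GFP (-0.93), EFNA1 and EPHA4 with fulvestrant in the control lines and the FGFR2 lines (0.47 and 0.35), EPHA2 in FGFR1 with trametinib (-0.78), EFNA1 in FGF3 with trametinib (0.46), EFNA1 with FGF2 on palbociclib in the control lines (-0.43), EPHA4 in FGF3 with FIIN-3 in set 2 (1.27), EPHA2 in the FGFR2 lines with fulvestrant, FGF2 and FIIN-3 against fulvestrant (-0.74) and the K660N difference in the EPHA2 response to FGF2 (-1.99).

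With no minimum count, EPHA2 in FGFR1 with trametinib (-0.76), EFNA1 in FGF3 with trametinib (0.48) and the K660N difference for EPHA2 (-1.97) passed. In the control lines EFNA1 with FGF2 (-0.48), EPHA4 with FGF2 on fulvestrant (-0.40), EPHA4 with FIIN-3 on FGF2 (0.31), EFNA1 with trametinib against FIIN-3 in set 2 (-0.14) and EFNA1 with fulvestrant, FGF2 and trametinib against fulvestrant (-0.21) no longer did, and EPHA4 with FGF2 on palbociclib changed sign (0.01). Each adjustment then ran over more genes.

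With the low MT-RNR2 libraries left out, EFNA1 in N550K against GFP (-0.34) and the K660N difference for EFNA1 (-0.04) changed sign, neither of them called. EFNA1 with FGF2 on palbociclib in the control lines (-0.31), EPHA4 in FGF3 with FIIN-3 in set 2 (1.38) and EPHA2 in the FGFR2 lines with fulvestrant, FGF2 and FIIN-3 against fulvestrant (-0.74) passed. EFNA1 with FGF2 (-0.19) and EPHA2 with palbociclib (-0.31), both in the FGFR2 lines, no longer did. The cause of these changes was not tested.

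Leaving out 1 library at a time from arms of 5 or fewer gave -5.29 to -3.53 for EPHA4 in FGF3 against GFP, -0.30 to 0.25 for EPHA2 and -0.07 to 0.12 for EFNA1 with fulvestrant in FGF3, and 0.42 to 0.55 for EFNA1 with trametinib in FGF3, which passed only without fulvestrant replicate 4.

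Replicate numbers were given in accession order and pair no samples. A replicate block was instead made from the range of 96 title numbers in which a library falls, which the labels do not call a batch. With this replicate block EPHA4 in M538I against GFP (-0.97), EPHA4 and EFNA1 with fulvestrant in the control lines (0.40 and 0.49), EPHA4 with fulvestrant in the FGFR2 lines (0.36), EFNA1 in FGF3 with trametinib (0.44), the N550K difference in the EFNA1 response to FIIN-3 (-0.53), the FGFR1 difference in the EPHA4 response to trametinib (0.62) and the K660N difference for EPHA2 (-1.99) passed the threshold. Under the same replicate block those no longer past it were EFNA1 with FGF2 in the control lines (-0.44) and FGFR2 lines (-0.10), EPHA2 with FGF2 on fulvestrant in the control lines (1.17), EFNA1 with FGF2 on fulvestrant in the FGFR2 lines (-0.13), EPHA4 with FIIN-3 on FGF2 in the control lines (0.26), EPHA2 with FIIN-3 on fulvestrant and FGF2 in the control lines (-1.41), EPHA2 with palbociclib in the FGFR2 lines (-0.19), EFNA1 in the FGFR2 lines with fulvestrant, FGF2 and FIIN-3 against fulvestrant (0.33) and EFNA1 in the control lines with fulvestrant, FGF2 and trametinib against fulvestrant (-0.15). EFNA1 with fulvestrant in FGF3 (-0.01) and EPHA2 with palbociclib in the control lines (0.01) changed sign with the replicate block.

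The count of all genes called moved by more than 1.5 times in 18 of 57 comparisons with the DESeq2 test, 1 with DESeq2 size factors, 14 with no minimum count, 17 with the replicate block and 15 of 26 with the low MT-RNR2 libraries left out; for FGF2 in the FGFR2 lines it went from 6601 genes to 3335 with the block and 4103 without those libraries. The all-gene median moved by up to 0.73 with no minimum count. Ranked by group means, 3 of the 5 genes most like EPHA2, 4 of those most like EPHA4 and 3 of those most like EFNA1 were the same. Depth limits EPHA2 most, above all in set 2, where its median was 4 reads.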
